A study of Homo sapiens with 12 samples.

Results

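Cisplatin-resistant SKOV-3 cells, labelled SKOV-3 CDDP, were compared with the parental SKOV-3 line by RNA-seq of polyadenylated RNA, with 3 libraries in each group. The libraries were assigned to the comparison by their labels: 6 of the 12 libraries of the series carry no knockout, 3 from cells labelled Parental with no drug resistance and 3 from cells labelled Resistant with resistance to cisplatin, all 6 with the genotype WT. The other 6 libraries come from the same backgrounds after a double knockout (dKO) of the histone demethylases KDM5A and KDM5B, 3 parental and 3 resistant, and served here only for values given side by side. SKOV-3 is an established line of epithelial ovarian adenocarcinoma, and all cells grew in RPMI medium with fetal bovine serum and antibiotics. The labels give neither the dose nor the length of cisplatin exposure, nor whether drug was present at harvest, nor whether the resistant line is 1 clone. Nor do they say whether replicates are separate cultures, so the p-values measure only library-to-library spread, possibly technical.

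Cisplatin is a platinum drug that enters cells through copper and organic cation transporters and anion channels, binds DNA and links neighbouring or opposite bases. Cells handle it by pumping platinum out, by trapping it on thiols such as glutathione and metallothionein, by repairing or bypassing the lesions, and by raising the threshold for cell death. In ovarian carcinoma, lines kept in the drug often also differ from their parent in cell identity, matrix and signalling genes. The comparison asks which genes differ between the resistant and the parental state before any KDM5 gene is removed.

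The 6 libraries held 15659352 to 19706754 counted reads. Of 17947 genes tested by edgeR's quasi-likelihood test, 5030 (28.0%) passed a Benjamini-Hochberg adjusted p of 0.05, 2728 (15.2%) higher and 2302 (12.8%) lower in resistant cells, and 4377 (24.4%) passed and differed at least 2-fold. Those 15.2% and 12.8% are the background against which the gene lists below are read, cancer-testis genes excepted, and the median log2 fold change of all genes was 0.02. A list's share leaves out members that failed the filter on low counts. A member that was off in 1 group was tested only through the other group. In 4249 genes (23.7%) every resistant library lay above every parental one, and in 3910 (21.8%) below, whether or not they passed. Without parental library 2 the count was 3081 (1729 higher and 1352 lower), and without resistant library 2 the lower genes numbered 1426. Parental library 3 and resistant library 1 stood somewhat apart from their groups. Without both of them 3546 genes passed. Spearman correlations between libraries were 0.96 to 0.9753 within the parental group, 0.9429 to 0.9828 within the resistant group and 0.8329 to 0.8871 between them.

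Large changes were common. Among the genes that passed, 1628 were at least 4-fold higher and 886 at least 4-fold lower, 665 and 372 at least 16-fold, and 101 and 59 at least 256-fold. At the extreme, 77 genes were under 0.1 CPM (reads divided by the library size after TMM scaling) in parental cells and at 5 CPM or more in resistant cells, 69 of them protein-coding. In the other direction 44 genes did so, 32 of them protein-coding. Genes at least 2-fold higher made up 3.28% to 4.48% of counts across the parental and 12.98% to 18.7% across the resistant libraries. Genes at least 2-fold lower made up 14.7% to 19.4% and 4.55% to 5.37%.

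The labelled cell type was checked against markers. Of 11 markers of an ovarian carcinoma line, 10 reached 1 CPM in parental and 7 in resistant cells, with summed levels of 2412 to 11080 and 2703 to 3290 CPM. Most of the parental sum came from ERBB2, and most of the resistant sum from ERBB2, KRT8 and KRT18. EPCAM, KRT7, ERBB2, MSLN, WFDC2 and FOLR1 were lower, KRT8 and KRT18 higher, and PAX8, GRB7 and MUC16 did not pass. Fibroblast markers at 1 CPM or more numbered 1 of 11 in parental and 7 of 11 in resistant cells, with sums of 1.97 to 8.85 and 367.2 to 972.1 CPM, most of it from COL1A1. DCN was lower in resistant cells (adjusted p = 0.0663 without parental library 3 and resistant library 1 together), and FAP and THY1 stayed near 0. Muscle markers numbered 2 and 4 of 6, with sums of 6.47 to 10.7 and 142.4 to 746.3 CPM, most of it from TAGLN. Leukocyte sums were 31.8 to 95.5 and 11.0 to 15.1 CPM, nearly all from CD68, with PTPRC, CD3E and LYZ at or near 0, and 0 of 7 endothelial markers reached 1 CPM in either group. In bulk RNA, fewer cells of a type and less RNA per cell cannot be told apart.

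In the text below, levels are CPM in libraries 1, 2 and 3, parental before resistant. log2FC is the log2 fold change of resistant over parental ± SE, with the edgeR adjusted p. The SE was derived as the absolute log2 fold change divided by the square root of the quasi-likelihood F. Where a group has 1 to 3 reads in all, the ratio of pooled levels is given with its 95% exact Poisson interval, which covers counting error only. Where a group has 0 reads, "at least" is a bound against a floor of 3 counts over its 3 libraries.

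Upstream sequences are shown first for 7 genes on which the results below turn: 3 inflammatory genes that fell (CXCL8, CXCL1 and IL6), 2 metallothioneins that rose (MT2A and MT1X) and 2 YAP target genes that rose (CCN2 and ANKRD1). Each is the 250 bases before the RefSeq transcription start in GRCh38.p14, 5′ to 3′ on the gene's own strand. Capitals mark matches to a motif searched on both strands: the NF-kB core GGNNTTTCC for CXCL8, CXCL1 and IL6, the metal response core TGCGCNC or TGCACNC for MT2A and MT1X, and the TEAD core GGAATG for CCN2 and ANKRD1.
CXCL8 (chr4:73740319-73740568, forward strand): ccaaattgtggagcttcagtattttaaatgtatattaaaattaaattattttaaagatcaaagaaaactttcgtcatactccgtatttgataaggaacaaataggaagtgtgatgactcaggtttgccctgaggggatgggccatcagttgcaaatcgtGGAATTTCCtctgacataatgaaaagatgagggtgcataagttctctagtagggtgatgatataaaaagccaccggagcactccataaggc
CXCL1 (chr4:73869143-73869392, forward strand): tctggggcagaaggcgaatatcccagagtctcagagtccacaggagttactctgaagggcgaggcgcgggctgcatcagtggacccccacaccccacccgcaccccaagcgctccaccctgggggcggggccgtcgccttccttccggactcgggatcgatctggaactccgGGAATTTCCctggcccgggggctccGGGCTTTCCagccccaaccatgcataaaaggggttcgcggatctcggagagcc
IL6 (chr7:22726950-22727199, forward strand): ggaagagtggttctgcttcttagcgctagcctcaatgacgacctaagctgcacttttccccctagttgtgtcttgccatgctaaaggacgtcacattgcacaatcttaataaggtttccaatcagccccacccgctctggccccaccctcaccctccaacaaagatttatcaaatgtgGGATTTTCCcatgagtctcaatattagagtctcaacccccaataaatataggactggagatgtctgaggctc
MT2A (chr16:56608334-56608583, forward strand): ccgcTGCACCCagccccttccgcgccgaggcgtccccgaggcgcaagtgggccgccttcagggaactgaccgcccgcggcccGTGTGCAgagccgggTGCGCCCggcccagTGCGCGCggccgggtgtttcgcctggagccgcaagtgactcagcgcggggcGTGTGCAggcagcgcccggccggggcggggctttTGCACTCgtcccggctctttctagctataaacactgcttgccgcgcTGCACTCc
MT1X (chr16:56682220-56682469, forward strand): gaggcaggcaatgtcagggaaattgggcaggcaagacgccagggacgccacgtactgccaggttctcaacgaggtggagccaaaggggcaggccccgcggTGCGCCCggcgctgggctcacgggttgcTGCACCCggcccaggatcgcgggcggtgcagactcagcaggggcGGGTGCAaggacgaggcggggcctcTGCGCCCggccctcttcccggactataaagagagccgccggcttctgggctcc
CCN2 (chr6:131951373-131951622, reverse strand): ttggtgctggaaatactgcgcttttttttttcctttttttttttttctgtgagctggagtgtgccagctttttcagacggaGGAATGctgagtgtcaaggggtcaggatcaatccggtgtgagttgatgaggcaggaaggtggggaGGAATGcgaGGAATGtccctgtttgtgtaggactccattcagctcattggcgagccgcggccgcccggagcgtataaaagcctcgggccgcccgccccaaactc
ANKRD1 (chr10:90921088-90921337, reverse strand): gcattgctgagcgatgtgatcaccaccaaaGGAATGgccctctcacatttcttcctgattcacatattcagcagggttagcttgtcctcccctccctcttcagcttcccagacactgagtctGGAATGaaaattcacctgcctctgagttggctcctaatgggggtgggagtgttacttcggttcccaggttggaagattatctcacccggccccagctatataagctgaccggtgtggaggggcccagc

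Across the 250 bases before the start of 27305 RefSeq promoters, 5.48% held the NF-kB core, 24.7% a metal response core and 11.9% the TEAD core. CXCL8 has its match at bases 91 to 83 before the start, and CXCL1 has matches at 78 to 70 and 53 to 45. The metal response core occurs 7 times in the MT2A window and 4 times in that of MT1X, and the TEAD core 3 times for CCN2 and 2 times for ANKRD1. Of 668 tested genes with the NF-kB core, 87 (13%) were higher and 95 (14.2%) lower, close to the background. So were the 3714 with a metal response core (15.2% higher and 13.7% lower) and the 1061 with the TEAD core (16.9% and 13.9%). A match is a stretch of letters and shows no binding.

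Platinum uptake genes moved both ways: 4 of 13 tested were higher and 2 lower (1 without parental library 3 or resistant library 2 or 3 and 0 without parental library 2). SLC22A2 (OCT2), an organic cation transporter that carries cisplatin, measured 0, 0.192 and 0 CPM in the parental and 7.00, 5.73 and 1.89 CPM in the resistant libraries (pooled resistant to parental ratio 83.95, interval 28.7 to 407, adjusted p = 0.000334). Every resistant library lay above every parental one, as for 23.7% of all genes tested, but the level reached was only a few CPM. SLC47A1 (MATE1), which exports the same organic cations, measured 0.0597, 1.22 and 1.14 against 30.1, 16.1 and 18.7 CPM (log2FC 4.73 ± 0.68, adjusted p = 0.000339). The copper transporter SLC31A1 (CTR1), the textbook entry route, measured 68.95, 86.8 and 85.1 against 99.6, 47.2 and 48.5 CPM and its groups overlapped (log2FC -0.30 ± 0.29, adjusted p = 0.46). Without resistant library 1 it passed as lower (log2 fold change -0.75, adjusted p = 0.0427). LRRC8 proteins form the volume-regulated anion channel that also admits platinum drugs. LRRC8B measured 3.94, 5.06 and 5.02 against 24.2, 14.2 and 13.2 CPM (log2FC 1.88 ± 0.33, adjusted p = 0.00141). LRRC8D, the subunit most tied to platinum entry, measured 34.4, 50.1 and 69.6 against 35.7, 16.9 and 13.7 CPM (log2FC -1.22 ± 0.40, adjusted p = 0.0359). Its groups overlapped, and LRRC8D did not pass in several reduced sets (adjusted p = 0.0791 without parental library 2, 0.101 without parental library 3, 0.127 without resistant library 2 and 0.133 without resistant library 3). The obligatory subunit LRRC8A did not pass (log2FC 0.80 ± 0.37, adjusted p = 0.127).

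Of 14 export and copper chaperone genes, 4 were higher (2 without parental library 2 or 3 or resistant library 2) and 1 lower (2 without parental library 2). ATP7A, a copper pump that sequesters platinum, measured 7.59, 6.08 and 9.94 CPM in the parental and 60.1, 22.4 and 14.7 CPM in the resistant libraries (log2FC 2.04 ± 0.50, adjusted p = 0.0091), the highest value being resistant library 1. Its relative ATP7B, at 20.4, 25.8 and 32.8 against 77.8, 29.2 and 31.2 CPM, did not pass (log2FC 0.81 ± 0.37, adjusted p = 0.124). ABCC3 (MRP3), an exporter of glutathione and glucuronide conjugates, fell from 261, 293 and 349 to 129.9, 49.6 and 77.7 CPM (log2FC -1.81 ± 0.36, adjusted p = 0.00319). ABCC5 measured 28.9, 11.7 and 34.2 against 117, 55.99 and 69.3 CPM (log2FC 1.70 ± 0.47, adjusted p = 0.0182), with adjusted p = 0.0676 without parental library 2 and 0.0718 without resistant library 1 (0.0593 without the latter and parental library 3). ATOX1, the chaperone that hands copper to ATP7A, measured 17.6, 9.99 and 13.6 against 25.2, 42.5 and 35.4 CPM (log2FC 1.32 ± 0.38, adjusted p = 0.0196), with adjusted p = 0.0858 without parental library 2, 0.0535 without parental library 3 and 0.0746 without resistant library 2.

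Metallothioneins are small cysteine-rich proteins that bind zinc, copper and platinum. Of 10 such genes and regulators on the list, 3 passed the filter on low counts, so the list's count describes only those. MT2A (ENSG00000125148, chromosome 16, 56608199 to 56609497) measured 177, 106 and 129.7 CPM in the parental and 351, 1003 and 1435 CPM in the resistant libraries, above the parental range in each resistant library (log2FC 2.76 ± 0.60, adjusted p = 0.00496). MT1X measured 33.1, 20.7 and 9.84 against 36.6, 95.9 and 98.3 CPM (log2FC 1.86 ± 0.50, adjusted p = 0.0157), with adjusted p = 0.055 without parental library 2, 0.052 without parental library 3 and 0.0537 without resistant library 2; resistant library 1 lay near the highest parental value. MTF1, the zinc-sensing factor that drives these genes through the metal response core printed above, measured 31.6, 45.02 and 28.5 against 18.7, 15.4 and 20.3 CPM (log2FC -0.95 ± 0.30, adjusted p = 0.0332), with adjusted p = 0.0586 without parental library 1, 0.156 without parental library 2, 0.0721 without resistant library 1, 0.118 without resistant library 2 and 0.0581 without resistant library 3 (0.0637 without parental library 3 and resistant library 1 together). Metallothionein genes are near-identical, and reads shared among them may have been split or dropped by the authors' counting.

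**Figure D1:**
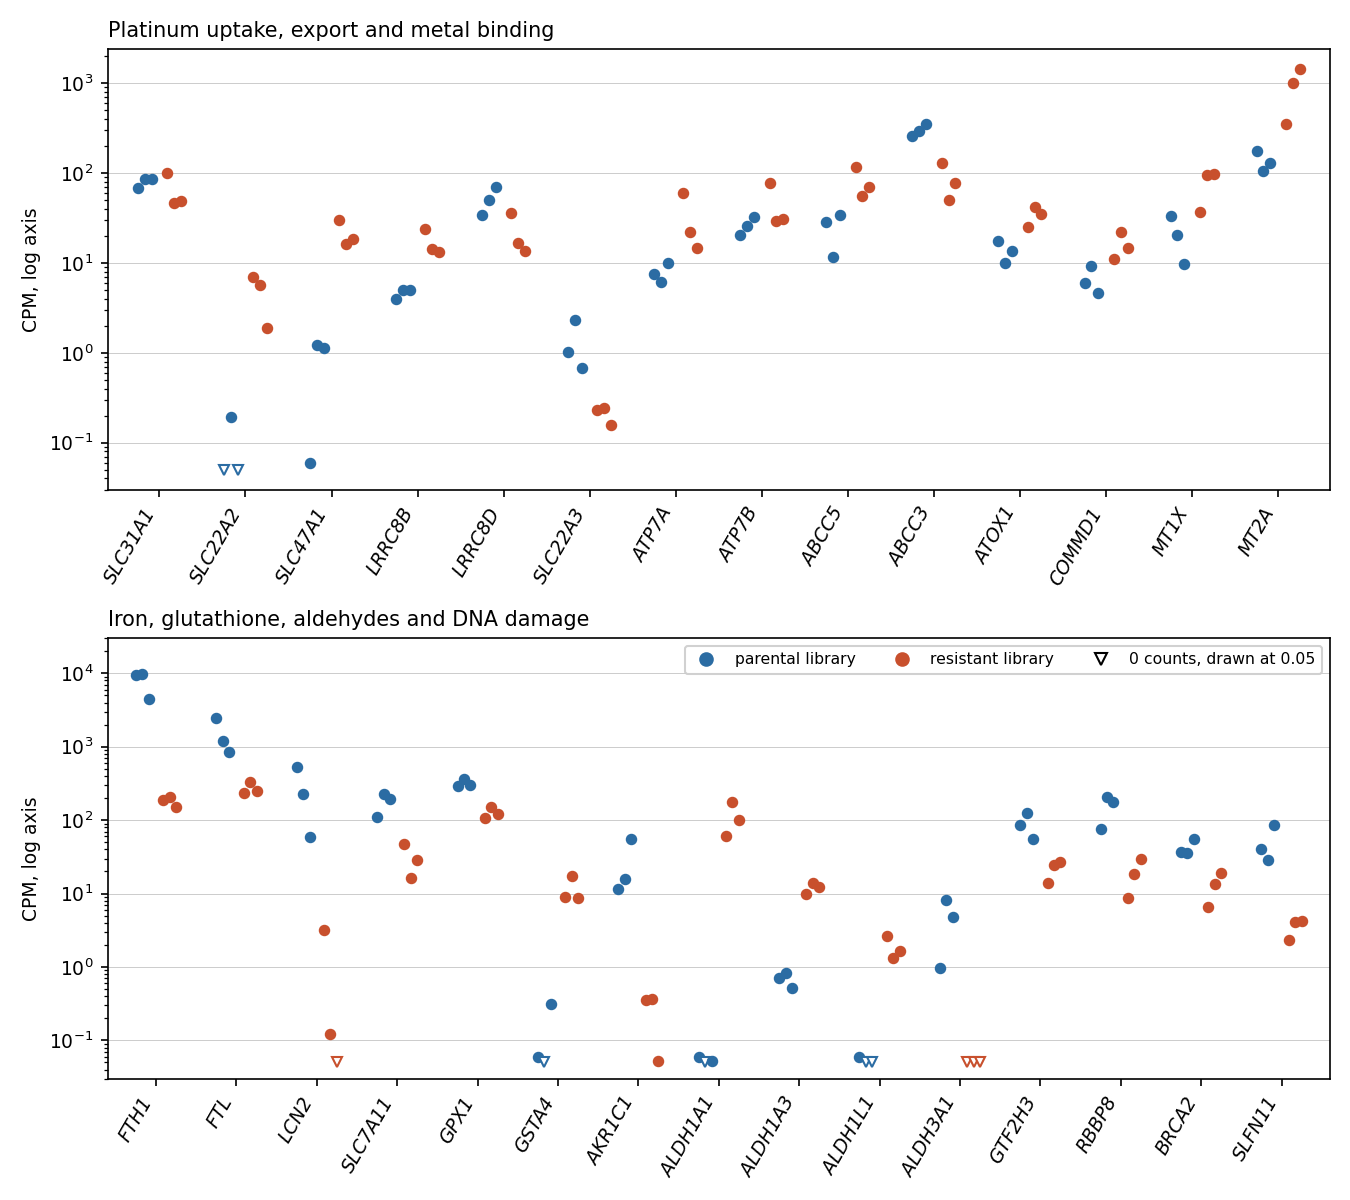
Levels of 29 genes for platinum transport, metal binding, glutathione, iron, aldehyde dehydrogenases and DNA repair, 1 point per library, on a log axis of CPM. Open triangles near the bottom of the axis mark libraries with 0 reads. Parental and resistant points lie far apart for FTH1, GSTA4, AKR1C1 and ALDH1A1 and overlap for SLC31A1.

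The glutathione list split evenly, with 5 of 24 higher (8 without parental library 3, 3 without parental library 1 or resistant library 2 and 2 without parental library 2) and 5 lower (3 without resistant library 2 or 3). SLC7A11, the cystine importer that feeds glutathione synthesis, fell from 112, 231 and 196 to 47.7, 16.3 and 28.9 CPM (log2FC -2.54 ± 0.50, adjusted p = 0.00302). The ligase subunits GCLC (log2FC -0.37 ± 0.25, adjusted p = 0.294) and GCLM (log2FC -0.13 ± 0.37, adjusted p = 0.826) did not pass, nor did the lipid peroxidase GPX4 (log2FC -0.13 ± 0.30, adjusted p = 0.787). Among the transferases, GSTA4 measured 0.0597, 0 and 0.311 against 8.87, 17.4 and 8.62 CPM (log2FC 6.39 ± 0.74, adjusted p = 7.3e-05). GSTA1 measured 0, 0 and 0 against 0.117, 4.39 and 1.68 CPM (at least 35.5-fold higher, adjusted p = 0.00813). GSTO2 fell from 9.8, 7.24 and 3.31 to 1.11, 2.01 and 0.893 CPM (log2FC -2.34 ± 0.51, adjusted p = 0.00496).

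The NRF2 target list had 3 of 22 higher (1 without parental library 2 or 3 or resistant library 2) and 8 lower (5 without parental library 3 or resistant library 3). The aldo-keto reductase AKR1C1 measured 11.6, 15.9 and 55.4 CPM in the parental and 0.35, 0.366 and 0.0526 CPM in the resistant libraries (log2FC -6.75 ± 0.92, adjusted p = 0.000252). Its neighbour AKR1C2 measured 0.777, 0.833 and 3.37 against 0, 0 and 0 CPM (at least 29.1-fold lower, adjusted p = 0.00233). The 2 genes are near-identical, so their reads may be shared. In the opposite direction, ME1, the cytosolic malic enzyme that makes NADPH, rose from 24.97, 26.7 and 29.7 to 64.3, 57.4 and 63.6 CPM (log2FC 1.19 ± 0.25, adjusted p = 0.00375). The NRF2 gene itself, NFE2L2, did not pass (log2FC -0.40 ± 0.35, adjusted p = 0.424). SLC7A11, AKR1C1 and ME1 are all NRF2 targets, and they did not move in 1 direction.

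Iron genes were more often lower than higher: 6 of 15 were lower and 1 higher (2 without parental library 3 and 0 without parental library 2). FTH1 (ENSG00000167996, chromosome 11, 61959718 to 61967660), the ferritin heavy chain that oxidises and stores iron, dropped from 9519, 9833 and 4424 to 187, 206 and 150.5 CPM (log2FC -5.45 ± 0.48, adjusted p = 9.27e-06). The light chain FTL dropped from 2435, 1208 and 847 to 236, 327 and 252 CPM (log2FC -2.46 ± 0.45, adjusted p = 0.00178). Ferritin has many processed pseudogenes, and how reads shared with them were counted is not given in the sources used here. LCN2, a siderophore-binding lipocalin, measured 529, 224 and 59.6 against 3.15, 0.122 and 0 CPM (log2FC -7.96 ± 1.49, adjusted p = 0.00209). STEAP1, a metal reductase, measured 5.97, 6.41 and 3.93 against 0.467, 1.16 and 0.42 CPM (log2FC -2.99 ± 0.50, adjusted p = 0.00108). The transferrin receptor TFRC did not pass (log2FC -0.72 ± 0.36, adjusted p = 0.153), but without resistant library 1 it did (log2 fold change -1.28, adjusted p = 0.0115).

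Aldehyde dehydrogenases detoxify reactive aldehydes and make retinoic acid, and ALDH1 activity is a marker used for stem-like ovarian cancer cells. Of 17 tested, 8 were higher and 3 lower. ALDH1A1 measured 0.0597, 0 and 0.0518 CPM in the parental and 59.9, 178 and 102 CPM in the resistant libraries (pooled resistant to parental ratio 2931, interval 812 to 24210, adjusted p = 1.78e-06). ALDH1A3 measured 0.717, 0.833 and 0.518 against 9.75, 14.1 and 12.2 CPM (log2FC 4.12 ± 0.44, adjusted p = 4.09e-05). The folate enzyme ALDH1L1 measured 0.0597, 0 and 0 against 2.63, 1.34 and 1.63 CPM (pooled resistant to parental ratio 96.4, interval 17.3 to 3807, adjusted p = 0.000552). Its mitochondrial relative ALDH1L2 measured 0.598, 0.32 and 0.725 against 6.95, 2.98 and 1.89 CPM (log2FC 2.82 ± 0.63, adjusted p = 0.00559). The retinaldehyde dehydrogenases did not move as a block, since ALDH1A2 fell from 2.45, 2.69 and 1.6 to 0.292, 0.0609 and 0.315 CPM (log2FC -3.28 ± 0.69, adjusted p = 0.00407). ALDH3A1 had reads in parental libraries only, at 0.956, 8.07 and 4.82 CPM (at least 80.8-fold lower, adjusted p = 0.00229).

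Few DNA repair genes passed the test. Nucleotide excision repair, which removes platinum links within a strand, had 2 higher (1 without resistant library 1, 2 or 3 and 0 without parental library 1, 2 or 3) and 3 lower (1 without parental library 2) of 28. Homologous recombination and Fanconi genes, which resolve links between strands, had 0 higher (0 at an unadjusted p under 0.05 by edgeR, 0 by DESeq2 and 0 by limma-voom, and 1 without resistant library 1) and 2 lower of 36. Mismatch repair and translesion synthesis had 1 higher (0 without any 1 of the 6 libraries) and 2 lower (1 without parental library 1 or 2 or resistant library 1 or 2) of 15. These shares are below the background of 15.2% higher and 12.8% lower, except for the 2 lower of 15. GTF2H3, a TFIIH subunit of excision repair, measured 86.99, 124 and 55.7 CPM in the parental and 13.7, 24.3 and 26.6 CPM in the resistant libraries (log2FC -2.04 ± 0.38, adjusted p = 0.00214). RBBP8 (CtIP), which starts resection of broken ends, fell from 74.6, 206 and 179 to 8.64, 18.3 and 29.3 CPM (log2FC -3.03 ± 0.54, adjusted p = 0.00154). BRCA2, which acts in homologous recombination, fell from 36.8, 35.2 and 56.01 to 6.48, 13.7 and 19.2 CPM (log2FC -1.70 ± 0.39, adjusted p = 0.00649). For each of these 3 genes every resistant library lay below every parental one, as for 21.8% of all genes tested. MLH3, a mismatch repair gene, fell from 29.6, 30.3 and 26.6 to 15.3, 14.1 and 12.04 CPM (log2FC -1.06 ± 0.22, adjusted p = 0.00366). ERCC1 (log2FC 0.29 ± 0.23, adjusted p = 0.373) and BRCA1 (log2FC -0.59 ± 0.54, adjusted p = 0.444) did not pass. SLFN11, a factor that blocks stalled replication forks and whose loss is known to accompany resistance to platinum drugs, fell from 40.5, 28.7 and 86.6 to 2.33, 4.14 and 4.21 CPM (log2FC -3.86 ± 0.52, adjusted p = 0.000209). Among the knockout libraries the same gene measured 49.2 ± 31.1 against 25.4 ± 1.33 CPM (means ± SD, n = 3) and did not pass (log2 fold change -0.96, adjusted p = 0.147).

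Of 31 apoptosis regulators 3 were higher and 7 lower (4 without parental library 1 or resistant library 1, 2 or 3 and 3 without parental library 2). The inhibitor of caspase-8 activation CFLAR (FLIP) rose from 26.9, 26.4 and 35.5 to 71.8, 52.6 and 69.8 CPM (log2FC 1.13 ± 0.23, adjusted p = 0.00321). BCL2A1, a BCL2 relative, measured 0.0597, 0 and 0 against 0.409, 2.25 and 2.58 CPM (pooled resistant to parental ratio 90.2, interval 16.2 to 3563, adjusted p = 0.00405). BIRC3, an inhibitor of apoptosis that NF-kB drives, fell from 12.2, 7.49 and 8.28 to 1.34, 1.16 and 0.578 CPM (log2FC -3.18 ± 0.69, adjusted p = 0.0048). MCL1 (log2FC -0.81 ± 0.32, adjusted p = 0.0789) and BCL2 (log2FC 0.62 ± 0.43, adjusted p = 0.298) did not pass. Of genes that restrain growth, the antiproliferative BTG2 rose from 1.61, 0.769 and 1.5 to 7.53, 3.72 and 3.47 CPM (log2FC 1.91 ± 0.45, adjusted p = 0.00733). The sestrins, which restrain mTORC1, split: SESN1 rose from 7.35, 7.62 and 6.78 to 15.9, 15.9 and 12.9 CPM (log2FC 1.04 ± 0.27, adjusted p = 0.0119). SESN2 fell from 129, 217 and 66.4 to 20.6, 13.3 and 18.3 (log2FC -2.98 ± 0.55, adjusted p = 0.00181). BTG2 (adjusted p = 0.0608) and SESN1 (0.0836) did not pass without parental library 3 and resistant library 1 together. The cell-cycle inhibitor CDKN1A did not pass (log2FC -0.91 ± 0.55, adjusted p = 0.233).

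SKOV-3 is known for amplified ERBB2 and for loss of the CDKN2A locus. CDKN2A and CDKN2B had 0 reads in all 6 libraries, whereas their neighbour MTAP, chosen after its values were seen, measured 37.3, 38.04 and 36.3 against 18.9, 32.05 and 37.7 CPM. ERBB2 (HER2) measured 1842, 2633 and 10140 CPM in the parental and 1538, 690 and 718 CPM in the resistant libraries (log2FC -2.31 ± 0.72, adjusted p = 0.0301). The high value is parental library 3, and the call rested on single libraries: adjusted p = 0.158 without parental library 3, 0.103 without resistant library 2 and 0.1 without resistant library 3, and 0.0902 without parental library 3 and resistant library 1 together. MIEN1, next to ERBB2 in the amplified interval, measured 607, 627 and 2203 against 107, 105 and 76.7 CPM (log2FC -3.57 ± 0.60, adjusted p = 0.00105) and was likewise highest in parental library 3. GRB7, on the other side of MIEN1, measured 8.13, 6.21 and 21.9 against 6.42, 1.89 and 1.42 CPM and did not pass (log2FC -1.90 ± 0.71, adjusted p = 0.0617), but without resistant library 1 it did (log2 fold change -2.87, adjusted p = 0.0202). PAX8, the Müllerian lineage factor, measured 251, 172 and 419 against 300.4, 195 and 171 CPM and did not pass either (log2FC -0.34 ± 0.48, adjusted p = 0.634).

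Epithelial genes were more often lower, 11 of 35 against 4 higher, and keratins split 4 higher and 6 lower of 12. EPCAM, an adhesion molecule of epithelia, fell from 28.8, 33.4 and 42.9 to 6.71, 4.14 and 1.52 CPM (log2FC -3.09 ± 0.53, adjusted p = 0.00122). CLDN3, a tight junction claudin, fell from 6.63, 5.57 and 9.99 to 0, 0 and 0.0526 CPM (pooled parental to resistant ratio 389, interval 69.8 to 15360, adjusted p = 0.000149). The epithelial ETS factor EHF fell from 3.82, 8.9 and 10.9 to 0.117, 0 and 0 (pooled parental to resistant ratio 207, interval 57.4 to 1711, adjusted p = 7.37e-05). MAL2, an apical sorting protein, fell from 193, 271 and 175 to 2.22, 0.914 and 1.16 (log2FC -7.21 ± 0.48, adjusted p = 1.22e-06). Of the keratins, KRT8, of simple epithelia, rose from 144, 247 and 280.4 to 1075, 1774 and 1277 CPM (log2FC 2.62 ± 0.40, adjusted p = 0.000546). Its partner KRT18 rose from 60.4, 162 and 101 to 353, 612 and 531 (log2FC 2.21 ± 0.44, adjusted p = 0.00308). KRT17 measured 57.4, 262 and 60.3 against 0, 0.305 and 1.47 CPM (log2FC -7.68 ± 1.53, adjusted p = 0.00304). KRT16 measured 0.299, 7.49 and 2.12 against 0, 0 and 0 CPM (at least 57.9-fold lower, adjusted p = 0.00966). KRT17 and KRT16 are keratins of stressed epithelia. The basal keratin KRT15 rose from 0.657, 0.64 and 4.5 to 41.7, 17.8 and 13.5 CPM (log2FC 3.63 ± 1.00, adjusted p = 0.0174), with adjusted p = 0.0596 without parental library 1, 0.0681 without parental library 2 and 0.0581 without resistant library 1. KRT7, another keratin of simple epithelia, fell from 23.1, 38.3 and 5.8 to 6.65, 4.33 and 1.74 CPM (log2FC -2.40 ± 0.82, adjusted p = 0.0439), with adjusted p = 0.0795 without parental library 1, 0.173 without parental library 2, 0.0562 without resistant library 1, 0.111 without resistant library 2 and 0.132 without resistant library 3. CDH1 (E-cadherin) was at a few CPM in both groups, 2.21, 1.67 and 1.81 against 4.49, 2.86 and 1.63 CPM, and did not pass (log2FC 0.66 ± 0.60, adjusted p = 0.439).

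Mesenchymal genes did not move together either, with 6 of 18 higher and 4 lower (2 without parental library 2 or resistant library 2). CDH2 (N-cadherin) rose from 30.8, 34.01 and 46.9 to 289, 172 and 187 CPM (log2FC 2.54 ± 0.35, adjusted p = 0.00025). TCF4 (E2-2) rose from 0.179, 0.064 and 0.103 to 28.3, 29.2 and 22.5 (log2FC 7.76 ± 0.52, adjusted p = 1.33e-06). The actin-binding TAGLN rose from 8.42, 3.33 and 5.54 to 135, 483 and 728 (log2FC 6.28 ± 0.81, adjusted p = 0.000171). Of the transcription factors tied to that state, TWIST1 fell from 23.9, 25.5 and 22.4 to 8.29, 13.7 and 8.78 CPM (log2FC -1.23 ± 0.26, adjusted p = 0.00434). PRRX1 fell from 0.598, 1.02 and 3.11 to 0, 0.122 and 0 (pooled parental to resistant ratio 41.4, interval 11.5 to 342, adjusted p = 0.0037). ZEB1 (log2FC -0.16 ± 0.23, adjusted p = 0.626) and VIM (log2FC 0.13 ± 0.53, adjusted p = 0.882) did not pass.

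Of 19 ovarian carcinoma lineage genes 9 were lower and 3 higher, with a median log2 fold change of -1.90. SLPI, a secreted protease inhibitor, measured 73.6, 347 and 267 against 4.96, 0.426 and 0.158 CPM (log2FC -6.96 ± 1.18, adjusted p = 0.00111). WFDC2 (HE4), a serum marker of ovarian cancer, measured 4.66, 3.91 and 3.42 against 0.117, 0.366 and 0.158 CPM (log2FC -4.20 ± 0.76, adjusted p = 0.00168). The folate receptor FOLR1 measured 19.5, 23.1 and 27.2 against 0.35, 0.548 and 0.158 CPM (log2FC -6.04 ± 0.85, adjusted p = 0.00031). The surface protein MSLN (mesothelin) measured 29.2, 41.05 and 40.95 against 1.17, 0.366 and 0.368 CPM (log2FC -5.86 ± 0.61, adjusted p = 3.3e-05). SOX17, a partner of PAX8 in this lineage, fell from 25.7, 31.2 and 22.1 to 5.89, 8.16 and 7.1 CPM (log2FC -1.90 ± 0.30, adjusted p = 0.000743). WT1, typical of serous tumours, measured 0.119, 0 and 0 against 0.817, 0.426 and 1.74 CPM (pooled resistant to parental ratio 25.6, interval 7.1 to 212, adjusted p = 0.00485). In each of these 6 genes the groups did not overlap, as in 45.5% of all genes tested.

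Lineage transcription factors moved in both directions, with 21 of 62 higher and 14 lower. GATA4, a factor of heart, gonad and gut development, rose from 0.119, 0.384 and 0.155 to 16.9, 16.9 and 11.7 CPM (log2FC 6.09 ± 0.49, adjusted p = 1.38e-05). TBX3 and the renal and Müllerian factor PAX2 had 0 reads in parental cells and measured 3.74, 3.23 and 2.58 CPM (at least 54.8-fold higher, adjusted p = 0.000183) and 8.05, 3.11 and 1.47 CPM (at least 72.5-fold higher, adjusted p = 0.00118) in resistant cells. NR2F1, an orphan nuclear receptor, rose from 1.37, 0.769 and 1.29 to 17.2, 27.96 and 11.04 CPM (log2FC 4.02 ± 0.56, adjusted p = 0.000292). In the other direction FOXQ1 fell from 27.6, 37.1 and 10.6 CPM to 0 reads (at least 439.5-fold lower, adjusted p = 6.52e-05). TBX15 fell from 12.5, 26.1 and 10.8 to 0.409, 0.548 and 0.526 CPM (log2FC -5.04 ± 0.59, adjusted p = 8.62e-05). FOXP2 fell from 2.63, 7.37 and 3.73 to 0.0584, 0 and 0.0526 (pooled parental to resistant ratio 120.2, interval 33.3 to 993, adjusted p = 0.000163). HOX genes had 5 higher (3 without parental library 3 or resistant library 2) and 4 lower (2 without parental library 3 or resistant library 1 or 3 and 1 without resistant library 2) of 27: HOXC9 measured 0.956, 0.448 and 0.259 against 5.95, 7.68 and 5.73 CPM (log2FC 3.53 ± 0.61, adjusted p = 0.00125). HOXC10 measured 0.179, 0.256 and 0.207 against 2.16, 3.47 and 2.1 CPM (log2FC 3.55 ± 0.68, adjusted p = 0.00234). HOXB7 fell from 136, 118 and 141 to 39.7, 62.3 and 37.6 CPM (log2FC -1.50 ± 0.28, adjusted p = 0.00184).

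**Figure D2:**
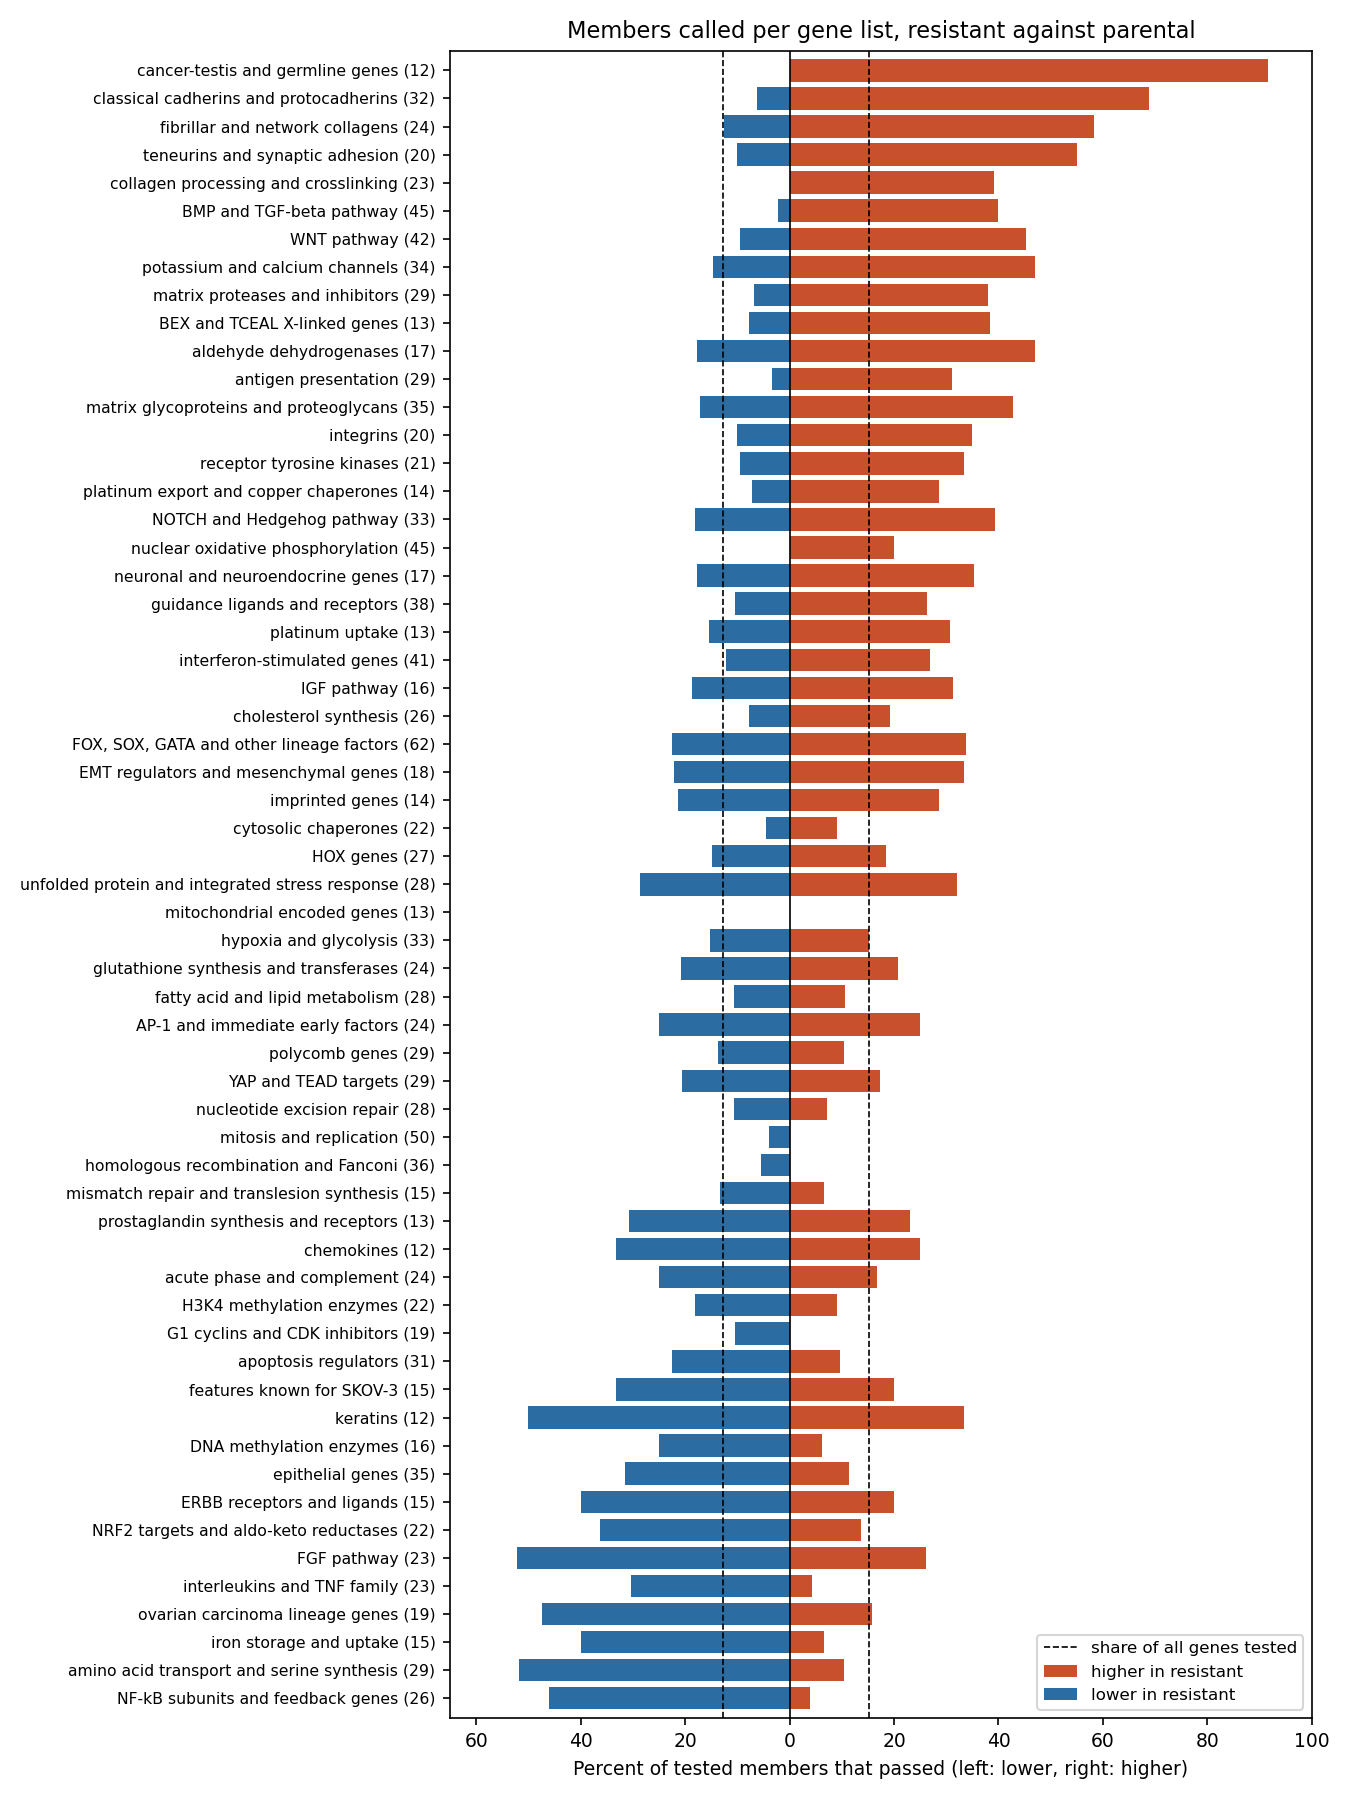
Share of tested members that passed the test in each gene list shown, all with at least 10 tested members, higher in resistant cells to the right and lower to the left, in percent; dashed lines mark the background of 15.2% higher and 12.8% lower over all 17947 genes. The cancer-testis bar (11 of 12) cannot be read against these lines, since its genes pass the filter only where they are on. Other lists also lost members to the filter on low counts, such as keratins (12 of 20 tested) and channels (34 of 51 tested). Their bars describe tested members only, and members off in 1 group were tested only through the other group. Of the other lists cadherins (22 of 32) and collagens (14 of 24) reach farthest to the right, and amino acid genes (15 of 29) and FGF genes (12 of 23) are among those farthest to the left.

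Collagens, the fibres and networks of the extracellular matrix, had 14 of 24 members higher and 3 lower, a median log2 fold change of 2.55. COL1A1 (ENSG00000108821, chromosome 17, 50183289 to 50201632), a chain of the main fibrillar collagen, measured 0.119, 0.384 and 2.28 CPM in the parental and 939, 729 and 345 CPM in the resistant libraries (log2FC 9.45 ± 1.24, adjusted p = 0.000183). COL6A3 measured 0, 0 and 0.0518 against 6.54, 7.92 and 11.04 CPM (pooled resistant to parental ratio 439, interval 78.8 to 17340, adjusted p = 1.06e-05). The transmembrane collagen COL13A1 measured 0.119, 0.064 and 0 against 17.6, 29.9 and 55.5 CPM (pooled resistant to parental ratio 591, interval 202 to 2865, adjusted p = 8.09e-06). Of the 3 lower collagens, COL4A4, of basement membranes, fell from 12.2, 13.2 and 18.02 to 3.15, 1.28 and 1.05 CPM (log2FC -2.98 ± 0.49, adjusted p = 0.000961). COL7A1, which forms anchoring fibrils under epithelia, fell from 1512, 559 and 780 to 240.3, 133 and 176 (log2FC -2.37 ± 0.43, adjusted p = 0.00165). COL8A2, a network collagen, fell from 1.73, 2.82 and 3.99 to 1.17, 0.244 and 0.315 CPM (log2FC -2.30 ± 0.69, adjusted p = 0.0256), with adjusted p = 0.0577 without parental library 2, 0.0665 without parental library 3, 0.0966 without resistant library 2 and 0.0949 without resistant library 3. Collagen processing and crosslinking genes had 9 of 23 higher and 0 lower (1 at an unadjusted p under 0.05 by edgeR, 0 by DESeq2 and 0 by limma-voom). The prolyl hydroxylase subunit P4HA3 measured 0, 0.064 and 0.518 against 12.6, 7.74 and 6.1 CPM (log2FC 5.38 ± 0.86, adjusted p = 0.000729). The procollagen peptidase ADAMTS2 measured 1.85, 0.833 and 1.86 against 123, 45.1 and 52.5 CPM (log2FC 5.58 ± 0.55, adjusted p = 2.37e-05). The lysyl oxidase LOXL4 measured 2.33, 4.1 and 2.12 against 339, 149 and 98.1 CPM (log2FC 6.10 ± 0.62, adjusted p = 2.98e-05).

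Matrix glycoproteins and proteoglycans had 15 of 35 higher and 6 lower. SPARC, a collagen-binding glycoprotein, measured 0, 0.32 and 2.43 CPM in the parental and 2343, 1117 and 916 CPM in the resistant libraries (log2FC 10.58 ± 1.27, adjusted p = 0.0001). POSTN (periostin) measured 0, 0.064 and 0 against 5.2, 16.2 and 6.2 CPM (pooled resistant to parental ratio 475, interval 85.3 to 18780, adjusted p = 2.77e-05). Of the lower members, FBN1 (fibrillin-1) fell from 18.8, 62.1 and 72.9 to 4.49, 0.792 and 1.31 CPM (log2FC -4.54 ± 0.76, adjusted p = 0.00104). LAMA3, the laminin chain to which epithelial hemidesmosomes anchor, fell from 136, 718 and 472 to 41.6, 22.2 and 19.1 (log2FC -4.00 ± 0.84, adjusted p = 0.0041). The proteoglycan DCN (decorin) fell from 1.07, 2.69 and 3.62 to 0.0584, 0.0609 and 0.105 CPM (log2FC -4.90 ± 1.22, adjusted p = 0.0104), with adjusted p = 0.0663 without parental library 3 and resistant library 1 together. Proteases and inhibitors had 11 of 29 higher and 2 lower (4 without resistant library 1): the gelatinase MMP2 measured 5.38, 5.96 and 17.03 against 146, 117 and 106 CPM (log2FC 3.70 ± 0.58, adjusted p = 0.000646). Its membrane-bound activator MMP14 measured 8.66, 1.28 and 1.86 against 30.8, 43.01 and 71.3 CPM (log2FC 3.62 ± 0.83, adjusted p = 0.00651). The interstitial collagenase MMP1 fell from 12.4, 40.1 and 341 to 0.292, 0.0609 and 0 CPM (log2FC -10.07 ± 1.84, adjusted p = 0.00178).

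Integrins, the matrix receptors, had 7 of 20 higher (11 without parental library 3 and 4 without parental library 1 or 2 or resistant library 1) and 2 lower. ITGA7, a laminin receptor of muscle, measured 2.51, 1.28 and 3.37 against 62.5, 27.96 and 29.96 CPM (log2FC 4.06 ± 0.59, adjusted p = 0.000358). ITGA10, a collagen receptor of cartilage, measured 5.97, 1.92 and 6.52 against 130, 36.8 and 24.9 CPM (log2FC 3.73 ± 0.87, adjusted p = 0.00738). ITGB4, the hemidesmosome integrin that binds the laminin made with LAMA3, fell from 183, 591 and 897 to 48.4, 16.3 and 14.03 CPM (log2FC -4.41 ± 0.83, adjusted p = 0.00214). ITGA1 fell from 4.48, 6.66 and 12.5 to 1.4, 0.853 and 0.263 (log2FC -3.23 ± 0.75, adjusted p = 0.00707). LAMA3, ITGB4, COL7A1, KRT5 and KRT17, all parts of the epithelial anchoring complex or its keratins, were each lower in resistant cells. This grouping was made after their values were seen and from genes that fell. Other parts of the complex are not given here, and the basal keratin KRT15 rose. KRT5 measured 0.478, 25.4 and 86.9 against 0, 0 and 0 CPM (at least 658-fold lower, adjusted p = 0.00898), with parental library 1 close to 0, and did not pass by limma-voom (adjusted p = 0.0647).

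Of 32 tested cadherins and protocadherins 22 were higher (14 without parental library 2 and 13 without resistant library 1) and 2 lower, a median log2 fold change of 3.13. The clustered protocadherins, cell-surface proteins that neurons use to tell self from non-self, account for much of this: all 15 tested PCDHB genes passed, side by side on chromosome 5 from 141094578 to 141249365, with log2 fold changes of 2.60 to 6.00. PCDHB6 measured 0.299, 0.128 and 2.64 CPM in the parental and 47.2, 35.3 and 19.03 CPM in the resistant libraries (log2FC 5.00 ± 1.06, adjusted p = 0.00427). PCDHB11 measured 0.179, 0.064 and 0.362 against 30.4, 8.59 and 2.26 CPM (log2FC 6.00 ± 1.25, adjusted p = 0.00402). PCDHB2, chosen after its values were seen, measured 2.27, 1.41 and 6.00 against 60.2, 33.6 and 18.1 CPM (log2FC 3.52 ± 0.84, adjusted p = 0.00827). The order within the resistant group was the same for all 3 genes, with library 1 highest and library 3 lowest. The next run on the same chromosome, 7 PCDHG genes between 141330571 and 141512981, was higher by 1.95 to 4.16 on the log2 scale. It was picked from these same calls as neighbours that changed in 1 direction. PCDHB genes are intronless and similar in sequence, and PCDHG variants share 3′ exons, so reads may be shared among members. Of the 2 lower members, CDH13 (T-cadherin) fell from 22.4, 55.1 and 76.5 to 1.75, 2.56 and 3.89 CPM (log2FC -4.22 ± 0.67, adjusted p = 0.000714). PCDH9 fell from 1.2, 2.24 and 4.71 to 0, 0.183 and 0.105 (log2FC -4.74 ± 1.22, adjusted p = 0.0123), with adjusted p = 0.0864 without parental library 3 and resistant library 1 together.

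Other adhesion genes known from synapses and axons were also more often higher, 11 of 20 against 2 lower (1 without parental library 2 or resistant library 2 or 3). TENM2 (teneurin-2) rose from 0, 0 and 0.0518 to 906, 461 and 475 CPM (pooled resistant to parental ratio 31740, interval 5697 to 1254000, adjusted p = 1.02e-06). NCAM1 measured 0, 0 and 0.155 against 209.9, 37.96 and 23.1 CPM (pooled resistant to parental ratio 1556, interval 532 to 7543, adjusted p = 9.94e-05). FLRT2 measured 0.0597, 0 and 0 against 58.3, 37.5 and 52.7 CPM (pooled resistant to parental ratio 2557, interval 459 to 101000, adjusted p = 7.97e-07). NLGN1 (neuroligin-1) fell from 0.777, 3.91 and 3.16 to 0, 0.244 and 0.0526 CPM (log2FC -4.66 ± 1.02, adjusted p = 0.00526). Guidance ligands and receptors had 10 of 38 higher (6 without resistant library 1) and 4 lower (2 without parental library 2 or resistant library 2 or 3): SEMA3E measured 0, 0.128 and 0.0518 against 33.9, 21.4 and 15.3 CPM (pooled resistant to parental ratio 406, interval 139 to 1967, adjusted p = 1.34e-05). SLIT3 measured 0.179, 0 and 0 against 44.9, 16.1 and 12.2 CPM (pooled resistant to parental ratio 420.4, interval 144 to 2038, adjusted p = 4.03e-05). EFNA5 fell from 17.8, 9.48 and 18.7 to 4.14, 2.31 and 2.84 CPM (log2FC -2.30 ± 0.38, adjusted p = 0.000904). These are names from neural work; of 7 neural markers 3 reached 1 CPM in parental cells and 3 in resistant cells, with sums of 39.7 to 87.8 and 139.6 to 196.2 CPM.

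BMP and TGF-beta genes had 18 of 45 higher and 1 lower (3 without resistant library 1 and 2 without parental library 3). Ligands were among them: BMP7 had 0 reads in parental libraries and 43.3, 23.3 and 26.4 CPM in resistant libraries (at least 534-fold higher, adjusted p = 6.59e-06). TGFB2 rose from 0.717, 1.99 and 1.66 to 135, 74.8 and 94.3 CPM (log2FC 6.12 ± 0.48, adjusted p = 4.31e-06). INHBA, the activin A subunit, rose from 1.73, 0.256 and 0.776 to 64.2, 98.7 and 75.2 (log2FC 6.41 ± 0.58, adjusted p = 1.14e-05). The member that fell was the BMP receptor BMPR1B, from 7.23, 13.2 and 7.3 to 1.23, 0.183 and 0.0526 CPM (log2FC -4.24 ± 0.88, adjusted p = 0.00391).

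WNT genes had 19 of 42 higher and 4 lower, a median log2 fold change of 1.23. Of the targets that report signalling, AXIN2 rose from 1.79, 1.92 and 2.74 to 8.64, 9.69 and 7.04 CPM (log2FC 1.97 ± 0.37, adjusted p = 0.00198). LGR5 rose from 0.0597, 0 and 0 to 1.17, 1.71 and 0.21 (pooled resistant to parental ratio 53.1, interval 9.53 to 2098, adjusted p = 0.00457). The antagonist NKD2 rose from 0.179, 0 and 0 to 20.9, 21.6 and 31.8 CPM (pooled resistant to parental ratio 426, interval 146 to 2067, adjusted p = 1.52e-05). The secreted antagonist SFRP4 measured 0.119, 0 and 0.0518 against 9.51, 1.83 and 0.893 CPM (pooled resistant to parental ratio 70.2, interval 24.03 to 341, adjusted p = 0.00323). Among ligands and receptors some fell: WNT10A from 6.09, 7.3 and 1.97 to 0.0584, 0.122 and 0.0526 CPM (log2FC -5.94 ± 0.89, adjusted p = 0.000474). WNT7A fell from 87.5, 143 and 347 to 20.1, 12.5 and 17.03 (log2FC -3.54 ± 0.90, adjusted p = 0.0112), with adjusted p = 0.0654 without parental library 3 and resistant library 1 together. The receptor FZD8 fell from 10.5, 19.2 and 15.8 to 1.75, 1.46 and 0.631 (log2FC -3.56 ± 0.45, adjusted p = 0.000134).

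FGF genes had 12 of 23 lower and 6 higher. FGF2, the basic fibroblast growth factor, fell from 496, 441 and 136 to 21.6, 37.6 and 77.3 CPM (log2FC -2.97 ± 0.66, adjusted p = 0.00537). The MAPK-induced feedback gene DUSP4 fell from 96.97, 123 and 59.4 to 3.04, 5.18 and 5.2 (log2FC -4.38 ± 0.57, adjusted p = 0.000183). The ETS factor ETV1 also fell from 1.61, 4.04 and 11.8 to 0.234, 0.487 and 0.368 (log2FC -3.98 ± 0.93, adjusted p = 0.00736), with adjusted p = 0.0802 without parental library 3 and resistant library 1 together. Of the ligands that rose, FGF1 measured 0.239, 0.384 and 0.0518 against 3.62, 26.99 and 99.5 CPM (log2FC 7.60 ± 1.60, adjusted p = 0.00412). The ligand FGF5 measured 0, 0 and 0.0518 against 9.4, 7.62 and 10.5 CPM (pooled resistant to parental ratio 474, interval 85.1 to 18720, adjusted p = 1.1e-05). FGFR2, a receptor for FGF1, rose from 1.2, 0.576 and 2.74 to 357, 131 and 85.4 CPM (log2FC 6.96 ± 0.75, adjusted p = 4.1e-05).

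ERBB receptors and ligands had 3 of 15 higher and 6 lower. The receptor EGFR measured 418, 694 and 497 against 278, 111 and 114 CPM (log2FC -1.68 ± 0.43, adjusted p = 0.0117), with adjusted p = 0.0506 without parental library 2 and 0.0544 without resistant library 2. Its partner ERBB3 rose from 1.14, 1.15 and 3.31 to 23.7, 12.7 and 8.72 CPM (log2FC 3.00 ± 0.55, adjusted p = 0.00181). EGFR ligands split by gene: EREG fell from 9.62, 32.1 and 4.97 CPM to 0 reads (at least 273-fold lower, adjusted p = 0.00035). BTC fell from 10.3, 17.2 and 9.53 to 1.34, 0.0609 and 0.158 CPM (log2FC -4.55 ± 0.91, adjusted p = 0.00301). HBEGF rose from 4.42, 3.59 and 3.26 to 109.6, 85.9 and 201 CPM (log2FC 5.13 ± 0.51, adjusted p = 2.32e-05). In the insulin-like growth factor pathway, with 5 higher and 3 lower (1 without parental library 2 or resistant library 2 or 3) of 16, the receptor IGF1R rose from 14.04, 10.1 and 13.6 to 75.1, 69.7 and 84.4 CPM (log2FC 2.60 ± 0.33, adjusted p = 0.000158). Its binding proteins switched: IGFBP1 fell from 14.3, 25.6 and 28.9 CPM to 0 reads (at least 402-fold lower, adjusted p = 6.64e-05). IGFBP2 rose from 0.478, 0.384 and 2.33 to 117, 57.4 and 48.7 CPM (log2FC 6.08 ± 0.70, adjusted p = 7.18e-05).

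NOTCH and Hedgehog genes had 13 of 33 higher and 6 lower (3 without parental library 1 or 2 or resistant library 2 or 3). NOTCH3 rose from 1.67, 0.833 and 1.14 to 42.02, 18.2 and 8.25 CPM (log2FC 4.22 ± 0.71, adjusted p = 0.00107). The fringe glycosyltransferase LFNG rose from 1.25, 0.32 and 1.4 to 20.8, 17.9 and 21.6 (log2FC 4.32 ± 0.83, adjusted p = 0.00249). The target HEYL rose from 0.239, 0.256 and 0.103 to 2.28, 5.85 and 7.78 (log2FC 4.71 ± 0.59, adjusted p = 0.000127). HES1, another target, fell from 12.7, 14.2 and 26.4 to 3.04, 6.88 and 5.41 CPM (log2FC -1.80 ± 0.40, adjusted p = 0.00599), with adjusted p = 0.0662 without parental library 3 and resistant library 1 together. The regulator DTX4 also fell from 277, 597 and 524 to 18.7, 14.7 and 12.1 (log2FC -4.94 ± 0.40, adjusted p = 5.29e-06). Other receptor tyrosine kinases included RET, which rose from 5.14, 3.33 and 6.42 to 97.8, 37.96 and 30.2 CPM (log2FC 3.47 ± 0.55, adjusted p = 0.000735). MST1R (RON) fell from 125, 121 and 214 to 22.2, 17.3 and 25.7 (log2FC -2.82 ± 0.40, adjusted p = 0.00034).

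YAP and TEAD targets had 5 of 29 higher and 6 lower (3 without resistant library 1 and 1 without parental library 2 or resistant library 2), so the list did not move in 1 direction. Of the higher members, CCN2 (CTGF), whose upstream window printed above holds 3 TEAD cores, measured 2.63, 9.41 and 9.06 CPM in the parental and 504, 393 and 1696 CPM in the resistant libraries (log2FC 6.94 ± 1.12, adjusted p = 0.000828). CCN1 (CYR61) rose from 140.2, 176 and 60.3 to 892, 1292 and 2272 CPM (log2FC 3.56 ± 0.68, adjusted p = 0.00239). ANKRD1 rose from 0.837, 5.38 and 0.103 to 34.7, 105 and 369 (log2FC 6.35 ± 1.60, adjusted p = 0.0109). Both CCN2 and ANKRD1 were highest in resistant library 3. Of the lower members, the receptor tyrosine kinase AXL fell from 704, 1073 and 636 to 260, 265 and 355 CPM (log2FC -1.46 ± 0.42, adjusted p = 0.0221), with adjusted p = 0.0953 without parental library 2, 0.0677 without resistant library 1 and 0.0762 without resistant library 2. F3 (tissue factor) fell from 404, 594 and 384 to 52.1, 77.2 and 157 CPM (log2FC -2.27 ± 0.58, adjusted p = 0.0116), with adjusted p = 0.0501 without resistant library 2. Both also missed the threshold without parental library 3 and resistant library 1 together (adjusted p = 0.0616 for AXL and 0.053 for F3). Of 21 list members with a promoter sequence 7 held the TEAD core, 3 of them higher and 1 lower. YAP1 itself did not pass (log2FC -0.41 ± 0.21, adjusted p = 0.161).

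Interleukins and TNF family members had 7 of 23 lower and 1 higher (2 without parental library 3), a median log2 fold change of -1.61. IL6 (ENSG00000136244, chromosome 7, 22725884 to 22732002) measured 171, 201 and 18.2 CPM in the parental and 0, 0 and 0.105 CPM in the resistant libraries (pooled parental to resistant ratio 3419, interval 946 to 28230, adjusted p = 0.000384). IL1A, an alarmin that starts the same response, measured 176, 203 and 16.8 against 0.0584, 0.244 and 0.0526 CPM (log2FC -10.08 ± 1.40, adjusted p = 0.000279). Parental library 3 was far under the other parental libraries for both genes, and still above every resistant library. The higher gene was IL12A, a subunit of interleukin-12, at 0.299, 0.32 and 0 against 1.52, 1.65 and 2.68 CPM (log2FC 3.24 ± 0.80, adjusted p = 0.00997).

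Chemokines attract leukocytes, and 4 of 12 were lower and 3 higher. CXCL8 (ENSG00000169429, chromosome 4, 73740506 to 73743716) measured 229, 791 and 52.8 CPM in the parental and 1.23, 1.34 and 0.946 CPM in the resistant libraries (log2FC -8.25 ± 1.49, adjusted p = 0.00168). CXCL1 measured 289, 749 and 274 against 16.4, 9.44 and 2.31 CPM (log2FC -5.54 ± 0.90, adjusted p = 0.000831). CXCL3 measured 14.6, 34.3 and 9.01 against 1.52, 1.58 and 0.946 CPM (log2FC -3.83 ± 0.79, adjusted p = 0.00356). CXCL12, a stromal chemokine, rose from 0, 0 and 0 to 7.35, 1.83 and 0.158 CPM (at least 53.6-fold higher, adjusted p = 0.0184), with adjusted p = 0.0816 without parental library 3 and resistant library 1 together. CXCL14, an epithelial chemokine, rose from 0, 0 and 0.0518 to 5.66, 1.58 and 0.946 (pooled resistant to parental ratio 141, interval 25.3 to 5572, adjusted p = 0.0018). The neutrophil chemokine genes lie together on chromosome 4 with EGF-family ligands. A run of 9 neighbouring tested genes that fell was picked there from these same calls: RASSF6, CXCL8, CXCL1, CXCL3, CXCL2, MTHFD2L, EREG, AREG and BTC. It spans 73571550 to 74794686, with falls of 2.08 to 11.1 on the log2 scale. The shared direction of its genes follows from how the run was picked. Of 2 members chosen after their values were seen, RASSF6 measured 8.72, 20.2 and 22.3 against 0.175, 0 and 0 CPM (pooled parental to resistant ratio 299, interval 102 to 1451, adjusted p = 3.99e-05). The other, CXCL2, measured 54.5, 89.7 and 21.7 against 5.66, 5.73 and 3.31 CPM (log2FC -3.50 ± 0.77, adjusted p = 0.00526). AREG did not pass without 1 library (adjusted p = 0.0672 without parental library 2).

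NF-kB subunits and feedback genes had 12 of 26 lower (7 without parental library 2 or resistant library 2) and 1 higher. TNFAIP3 (A20), the feedback inhibitor, fell from 46.5, 30.7 and 14.9 to 1.63, 1.46 and 0.736 CPM (log2FC -4.58 ± 0.67, adjusted p = 0.000384). The adhesion molecule ICAM1 fell from 5.68, 5.76 and 3.62 to 0.292, 0.366 and 0.105 (log2FC -4.28 ± 0.70, adjusted p = 0.000886). The adaptor TRAF1 fell from 2.33, 0.576 and 1.29 to 0.175, 0.122 and 0 (log2FC -3.77 ± 0.77, adjusted p = 0.0036). CD83, a surface protein of activated immune cells, was the member that rose, from 3.05, 1.54 and 2.12 to 18.1, 11.4 and 5.83 CPM (log2FC 2.39 ± 0.52, adjusted p = 0.00505), with adjusted p = 0.0528 without parental library 3 and resistant library 1 together. The subunit RELA (log2FC -0.61 ± 0.27, adjusted p = 0.102) and the inhibitor NFKBIA (log2FC -0.18 ± 0.39, adjusted p = 0.761) did not pass. Of 23 list members with a promoter sequence 10 held the NF-kB core, 5 of them lower and 0 higher. Of 8 chemokines 5 held it, 4 of them lower, and the fifth, CCL20, chosen after its values were seen, did not pass (log2FC 2.15 ± 0.87, adjusted p = 0.0832). The core was also held by 4 of 18 interleukins and TNF family members, 2 of them lower and 0 higher. Acute phase and complement genes held it in 2 of 15, 1 of them higher and 0 lower.

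Acute phase and complement genes split, with 4 of 24 higher (2 without parental library 2 or resistant library 1) and 6 lower. SAA1, an acute phase apolipoprotein, fell from 28.6, 21.8 and 6.37 to 0.292, 0 and 0 CPM (log2FC -7.53 ± 1.14, adjusted p = 0.000501). SAA2, whose coding sequence is nearly the same, so that reads may be shared, fell from 3.94, 4.29 and 1.66 to 0, 0.0609 and 0 (pooled parental to resistant ratio 173, interval 31.1 to 6846, adjusted p = 0.000615). The complement component C3 fell from 394, 722 and 291 to 8.93, 2.5 and 0.263 CPM (log2FC -6.91 ± 1.14, adjusted p = 0.000955). The pentraxin PTX3 fell from 12.5, 83.6 and 1.92 to 0.0584, 0 and 0 (pooled parental to resistant ratio 1717, interval 308 to 67820, adjusted p = 0.00678), but did not pass by limma-voom (adjusted p = 0.0791). CLU (clusterin), an extracellular chaperone, rose from 2.33, 8.2 and 23.8 to 600.4, 616 and 549.5 CPM (log2FC 5.68 ± 0.85, adjusted p = 0.000489).

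Interferon-stimulated genes had 11 of 41 higher and 5 lower. The guanylate-binding protein GBP1 rose from 0.538, 0.128 and 0.466 to 14.5, 18.2 and 17.4 CPM (log2FC 5.42 ± 0.78, adjusted p = 0.000357). The antiviral membrane protein IFITM3 rose from 118, 185 and 299 to 893, 904 and 483 (log2FC 1.92 ± 0.44, adjusted p = 0.00669). BST2 (tetherin) fell from 95.8, 92.3 and 247 to 6.54, 9.5 and 1.79 CPM (log2FC -4.61 ± 0.67, adjusted p = 0.000384). SLFN5 fell from 66.6, 139.8 and 13.98 to 2.92, 1.58 and 0.946 (log2FC -5.34 ± 1.15, adjusted p = 0.00485). Antigen presentation and checkpoint genes had 9 of 29 higher (5 without resistant library 1 and 4 without parental library 2) and 1 lower (0 without parental library 1 or 2 or resistant library 2 or 3). CD274 (PD-L1) rose from 0.956, 0.256 and 0.207 to 14.7, 30.04 and 62.7 CPM (log2FC 6.23 ± 0.80, adjusted p = 0.000163). Its relative PDCD1LG2 (PD-L2) rose from 0.179, 0.064 and 0 to 1.93, 2.74 and 4.94 (log2FC 5.23 ± 0.99, adjusted p = 0.00215). ULBP2, a stress ligand for natural killer cells, rose from 0.598, 0.576 and 1.45 to 25.4, 20.9 and 22.2 (log2FC 4.68 ± 0.42, adjusted p = 1.06e-05). B2M, the shared light chain of class I molecules, did not pass (log2FC 0.47 ± 0.44, adjusted p = 0.455).

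Prostaglandin genes had 3 of 13 higher (1 without parental library 2 or resistant library 1) and 4 lower (2 without parental library 2 or resistant library 2 or 3). Prostacyclin synthase PTGIS fell from 64.7, 77.4 and 187 to 0.584, 0.366 and 0.21 CPM (log2FC -8.13 ± 0.84, adjusted p = 3.13e-05). PTGDS fell from 14.3, 7.3 and 9.84 to 0.934, 0.914 and 0.368 (log2FC -3.82 ± 0.67, adjusted p = 0.00138). The receptor PTGER4 rose from 0.299, 0 and 0.362 to 3.09, 3.84 and 5.05 (log2FC 4.10 ± 0.93, adjusted p = 0.00621).

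**Figure D3:**
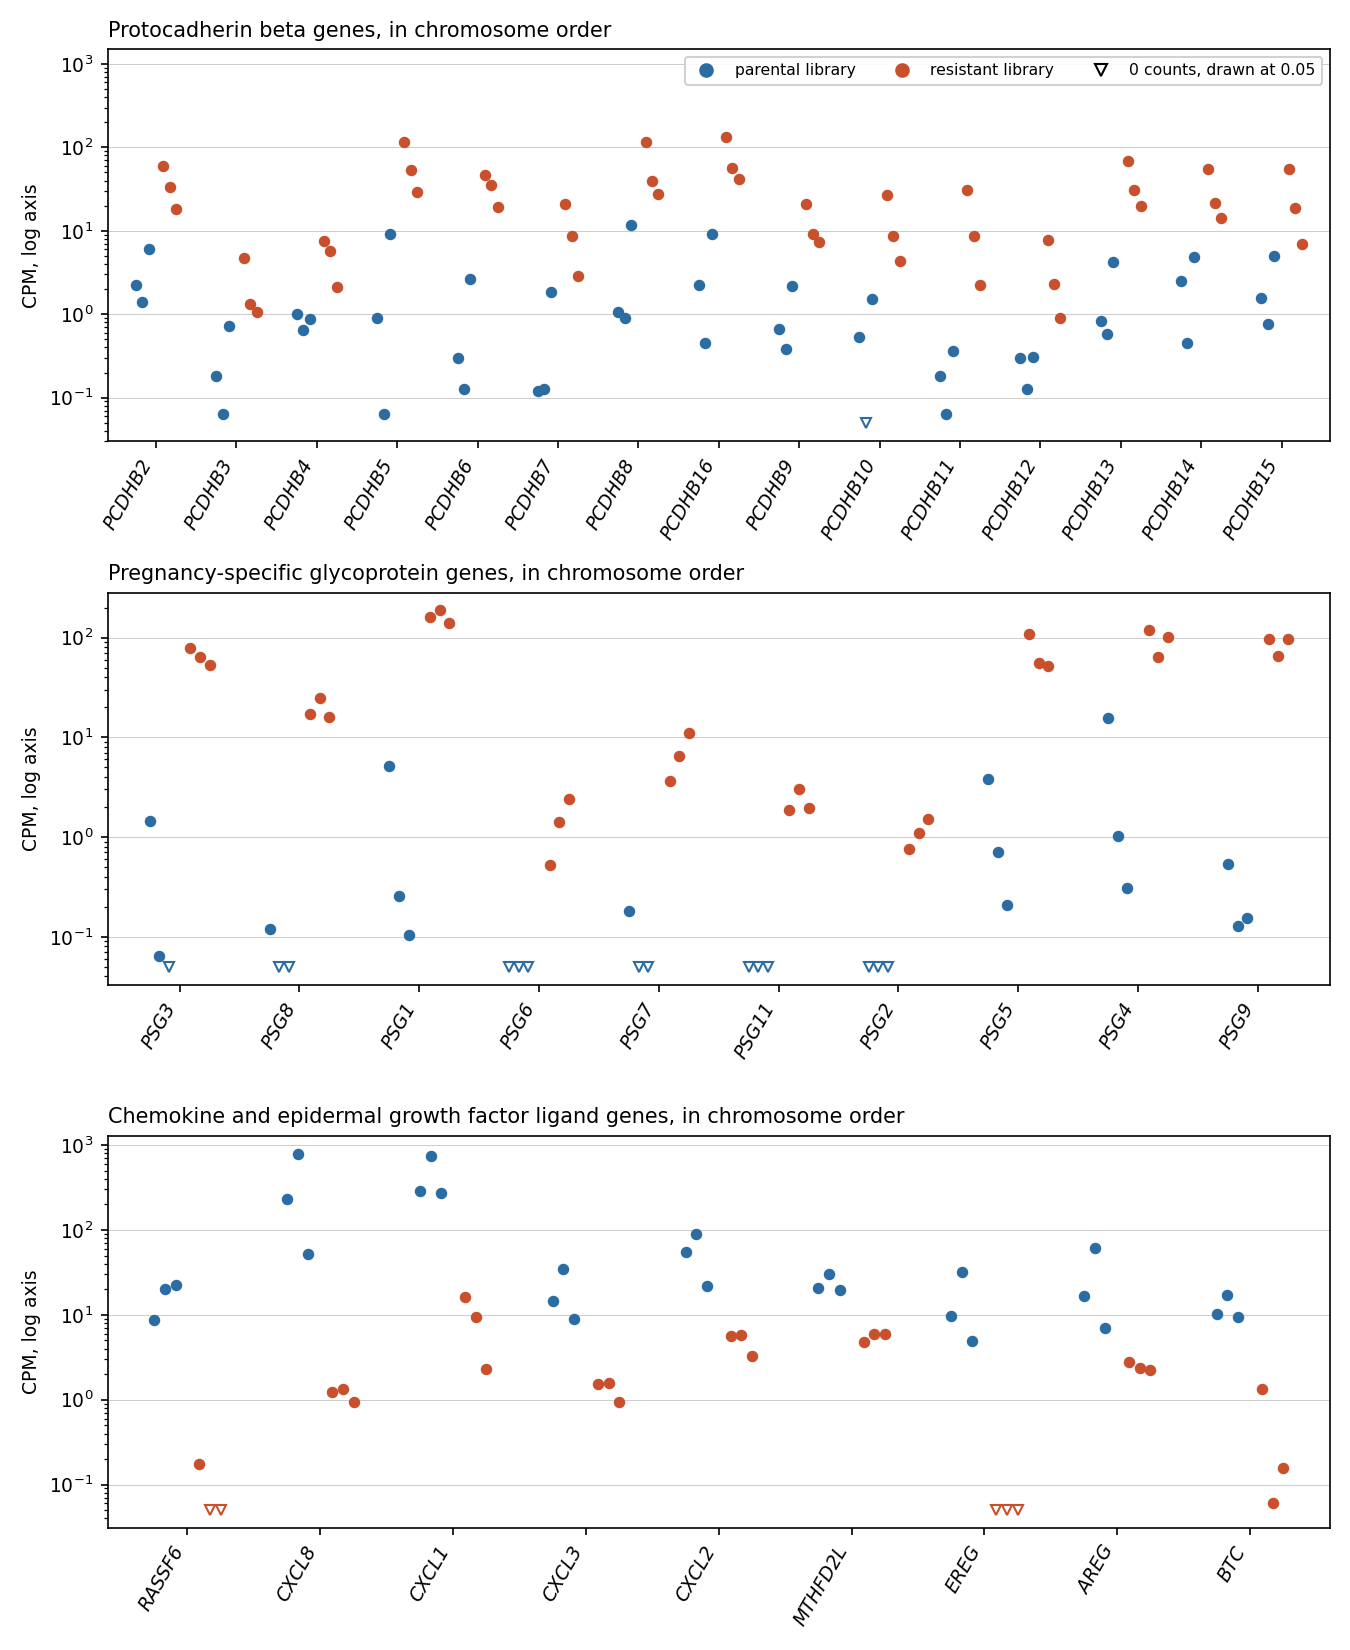
Levels of neighbouring genes in chromosome order by library, in CPM on a log scale: 15 PCDHB genes on chromosome 5, 10 PSG genes on chromosome 19 and 9 chemokine and EGF-family genes on chromosome 4. The 3 resistant libraries lie above the parental ones along both higher runs and below them along the lower run.

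Stress response genes of the endoplasmic reticulum and of translation had 9 of 28 higher and 8 lower (5 without parental library 1 and 3 without parental library 2 or resistant library 1, 2 or 3). Of the higher members, MANF, a secreted factor of the endoplasmic reticulum, rose from 53, 68.8 and 68.3 to 251, 368 and 432 CPM (log2FC 2.47 ± 0.34, adjusted p = 0.000293). SDF2L1 rose from 13.6, 9.8 and 12.99 to 59.1, 104 and 138 (log2FC 3.04 ± 0.39, adjusted p = 0.000155). HSP90B1 (GRP94) rose from 769, 1061 and 1004 to 2012, 2473 and 2627 (log2FC 1.33 ± 0.32, adjusted p = 0.0084). Of the lower members, the pseudokinase TRIB3 fell from 588, 944 and 121 to 25.6, 29.6 and 47.6 CPM (log2FC -4.01 ± 0.93, adjusted p = 0.00724). DDIT3 (CHOP) fell from 177, 168 and 29.4 to 11.8, 14.7 and 18.6 (log2FC -3.05 ± 0.77, adjusted p = 0.0108). In both TRIB3 and DDIT3 parental library 3 lay far below the other 2 parental libraries. The transcription factor ATF4 (log2FC -0.72 ± 0.35, adjusted p = 0.139) and the chaperone HSPA5 (log2FC 0.83 ± 0.58, adjusted p = 0.308) did not pass. ATF4 did without both libraries numbered 3 of parental and parental knockout cells (adjusted p = 0.0495).

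Amino acid transport and serine synthesis genes, many of them ATF4 targets, had 15 of 29 lower (9 without resistant library 3 and 8 without parental library 2 or resistant library 2) and 3 higher. BCAT1, a branched-chain aminotransferase, fell from 183, 229.7 and 176 to 2.74, 1.1 and 3.15 CPM (log2FC -6.39 ± 0.54, adjusted p = 6.84e-06). The glutamine carrier SLC38A1 fell from 381, 588 and 459.7 to 48.97, 17.3 and 25.5 (log2FC -3.96 ± 0.40, adjusted p = 2.77e-05). The glycine carrier SLC6A9 fell from 65.6, 154 and 63.7 to 12.1, 2.62 and 2.94 (log2FC -4.00 ± 0.67, adjusted p = 0.00108). ASS1, argininosuccinate synthase, fell from 152, 426 and 180.2 to 49.3, 45.2 and 19.6 CPM (log2FC -2.73 ± 0.63, adjusted p = 0.00669). GLUL, glutamine synthetase, went from 0 reads to 16.8, 11.6 and 7.57 CPM (at least 207-fold higher, adjusted p = 1.54e-05). Neutral amino acid uptake through SLC7A5 (LAT1) measured 2287, 3749 and 1805 against 1022, 552 and 1019 CPM (log2FC -1.60 ± 0.48, adjusted p = 0.0255), with adjusted p = 0.114 without parental library 2, 0.0988 without resistant library 2 and 0.0514 without resistant library 3.

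In lipid metabolism, the fatty acid elongase ELOVL2 rose from 0.777, 2.18 and 2.23 to 66.7, 31.1 and 27.3 CPM (log2FC 4.59 ± 0.47, adjusted p = 3.03e-05). ELOVL4 rose from 9.44, 10.6 and 11.8 to 75.7, 31.1 and 22.3 (log2FC 2.02 ± 0.41, adjusted p = 0.0033). ACAT2, which makes acetoacetyl-CoA for sterol synthesis, rose from 6.15, 10.3 and 19.5 to 77.4, 49.6 and 49.4 (log2FC 2.29 ± 0.50, adjusted p = 0.00526). EBP, a later sterol enzyme, fell from 42.2, 12.8 and 10.6 to 5.02, 3.96 and 6.78 CPM (log2FC -2.05 ± 0.49, adjusted p = 0.00853). SCD, the stearoyl-CoA desaturase, measured 98.6, 288 and 1153 against 1550, 67.4 and 78.8 CPM (log2FC 0.14 ± 1.08, adjusted p = 0.937): resistant library 1 stood far above the other resistant libraries, and without it the log2 fold change was -2.81 with an adjusted p of 0.05. Of hypoxia genes, EPAS1 (HIF-2alpha) fell from 521, 1020 and 142 to 48.4, 43.99 and 36 CPM (log2FC -3.71 ± 0.76, adjusted p = 0.00348). VEGFA fell from 1021, 1114 and 765 to 443, 153 and 108 (log2FC -2.04 ± 0.48, adjusted p = 0.00761). The prolyl hydroxylase EGLN3 rose from 0, 0.064 and 0.103 to 3.27, 3.96 and 2.15 (pooled resistant to parental ratio 53.9, interval 18.4 to 261, adjusted p = 0.000349).

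Few proliferation genes passed the test, with 0 higher (0 at an unadjusted p under 0.05 by edgeR, 0 by DESeq2 and 0 by limma-voom, but 3 without parental library 3 and resistant library 1 together) and 2 lower (1 without parental library 2 or 3 or resistant library 1 or 2) of 50 mitosis and replication genes. MKI67 (log2FC -0.18 ± 0.66, adjusted p = 0.867) and PCNA (log2FC 0.38 ± 0.64, adjusted p = 0.694) did not pass, which does not show that they were equal. CDC25B, a phosphatase that admits cells to mitosis, fell from 576, 972 and 1013 to 171, 150.3 and 169 CPM (log2FC -2.38 ± 0.32, adjusted p = 0.000227). In the G1 list CCND1 (cyclin D1) fell from 156, 286 and 220 to 27.4, 44.7 and 77.8 CPM (log2FC -2.14 ± 0.50, adjusted p = 0.00691). The retinoblastoma gene RB1 fell from 80.2, 129 and 99.1 to 28.4, 27.2 and 27.6 (log2FC -1.89 ± 0.30, adjusted p = 0.000639). The 13 genes encoded by mitochondrial DNA had 0 calls in either direction, 0 also at an unadjusted p under 0.05 by edgeR and 0 by DESeq2 and by limma-voom.

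Cancer-testis and germline genes had 45 entries, of which 12 passed the filter on low counts, 11 of them higher and 0 lower (0 also at an unadjusted p under 0.05 by edgeR and by DESeq2 and limma-voom). Since such a gene passes the filter only through a group where it is on, this count cannot be read against the background. MAGEA3 measured 0, 0 and 0 against 4.73, 4.75 and 3.84 CPM (at least 76.5-fold higher, adjusted p = 0.000106). MAGEA12 measured 0, 0 and 0 against 8.93, 8.71 and 6.83 CPM (at least 140.5-fold higher, adjusted p = 4.86e-05); MAGEA copies share reads. Among BEX and TCEAL genes and their X-linked relatives, 5 of 13 were higher (3 without parental library 2 or resistant library 2) and 1 lower (2 without parental library 3). ARMCX6 rose from 3.29, 1.99 and 2.85 to 21.1, 18.2 and 12.1 CPM (log2FC 2.66 ± 0.45, adjusted p = 0.00104). ARMCX3 rose from 15.8, 14.5 and 12.4 to 55.2, 38.5 and 31.9 (log2FC 1.55 ± 0.34, adjusted p = 0.00514), with adjusted p = 0.0604 without parental library 3 and resistant library 1 together. TCEAL8 fell from 0.657, 0.961 and 1.45 CPM to 0 reads (at least 17.9-fold lower, adjusted p = 0.000375). MAGEH1 and LDOC1, also on the X chromosome, had 0 reads in parental cells and measured 23.4, 16.4 and 10.04 CPM (at least 286-fold higher, adjusted p = 0.000107) and 99.05, 92.4 and 85.4 CPM (at least 1589-fold higher, adjusted p = 2.31e-06) in resistant cells.

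Pregnancy-specific glycoproteins, products of the placenta, formed another long run, picked from these same calls as neighbours that changed in 1 direction. It held 10 neighbouring PSG genes on chromosome 19, from 42721638 to 43269530, higher by 4.07 to 8.72 on the log2 scale. Of 3 members chosen after their values were seen, PSG1 measured 5.14, 0.256 and 0.103 against 159, 187 and 139 CPM (log2FC 6.46 ± 1.02, adjusted p = 0.000704). PSG5 measured 3.82, 0.705 and 0.207 against 109, 55.1 and 51.6 CPM (log2FC 5.51 ± 0.80, adjusted p = 0.000368). PSG9 measured 0.538, 0.128 and 0.155 against 96.4, 65.7 and 95.8 CPM (log2FC 8.27 ± 0.49, adjusted p = 9.74e-07). Parental library 1 held the highest parental value of all 3. These genes are similar in sequence and reads may be shared.

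Imprinted genes moved one by one. MEST fell from 16.8, 24.1 and 26.2 to 0.117, 0.183 and 0.158 CPM (log2FC -7.13 ± 0.44, adjusted p = 1.02e-06). PLAGL1 fell from 52.9, 37.9 and 57.05 to 7.06, 4.45 and 3.1 (log2FC -3.34 ± 0.46, adjusted p = 0.00025). NAP1L5 rose from 0, 0 and 0.0518 to 9.51, 10.7 and 6.78 (pooled resistant to parental ratio 465, interval 83.5 to 18380, adjusted p = 2.04e-05). SGCE, a neighbour of the imprinted PEG10, rose from 43.6, 60.3 and 52.5 to 216, 134 and 90.5 (log2FC 1.49 ± 0.36, adjusted p = 0.00816), with adjusted p = 0.0637 without parental library 3 and resistant library 1 together.

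CpG counts of promoters are given as a description. RefSeq promoters matched 11235 of 13922 tested coding genes (80.7%), with a median of 21 CpG in the 250 bases before the start. The 52 matched coding genes that went from under 0.1 to at least 5 CPM had a median of 16, and 57.7% of them had 10 or more CpG. The 21 that went the other way had a median of 11 and 61.9%. These genes passed the filter on low counts only through the group where they are on, so they were not compared with all tested genes, and DNA methylation was not measured.

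KDM5A and KDM5B, the targets of the series' knockout, did not pass the test, nor did KDM5C. KDM5A measured 30.9, 41.5 and 39.4 against 39.9, 38.99 and 33.4 CPM (log2FC 0.01 ± 0.24, adjusted p = 0.989). KDM5B measured 50.9, 79.7 and 43.02 against 112, 78.8 and 39.5 CPM (log2FC 0.40 ± 0.49, adjusted p = 0.571). KDM5C measured 169, 228 and 171 against 211, 161 and 159.6 CPM (log2FC -0.10 ± 0.25, adjusted p = 0.802). Of 22 enzymes that write or erase H3K4 methylation, 2 were higher (1 without parental library 3 or resistant library 1, 2 or 3 and 0 without parental library 1 or 2) and 4 lower (2 without parental library 2 or 3 or resistant library 2 or 3). SETD7, which methylates histone H3 and other proteins, fell from 61.7, 96.7 and 85.2 to 24.5, 26.5 and 33.3 CPM (log2FC -1.53 ± 0.28, adjusted p = 0.00169). The H3K36 demethylase KDM2B fell from 51.4, 90.2 and 77.4 to 26.7, 30.6 and 33.4 (log2FC -1.27 ± 0.27, adjusted p = 0.00412). Of DNA methylation genes, the methyltransferase DNMT3B fell from 84.7, 96.3 and 46.1 to 18.4, 24.4 and 19.1 CPM (log2FC -1.88 ± 0.37, adjusted p = 0.00297). The demethylating enzyme TET1 rose from 1.07, 0.769 and 1.35 to 7.59, 7.37 and 4.36 (log2FC 2.58 ± 0.42, adjusted p = 0.000794). In the polycomb list CBX2 rose from 6.45, 5.51 and 7.92 to 17.9, 21.4 and 29.3 CPM (log2FC 1.78 ± 0.41, adjusted p = 0.00704). CBX8 rose from 13.9, 10.2 and 13.9 to 29.1, 33.9 and 29.4 (log2FC 1.28 ± 0.26, adjusted p = 0.00312). PCGF5 fell from 95.6, 112 and 72.2 to 21.01, 24.7 and 24.02 (log2FC -2.01 ± 0.27, adjusted p = 0.000212).

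Of 34 potassium and calcium channel genes 16 were higher (8 without parental library 2) and 5 lower (3 without resistant library 2). CACNG4, an auxiliary calcium channel subunit, rose from 0.538, 0.192 and 0.311 to 70.9, 44.9 and 61.3 CPM (log2FC 7.38 ± 0.43, adjusted p = 7.97e-07). The potassium channel KCNH2 (hERG) rose from 0.239, 0.128 and 0 to 5.14, 2.56 and 1.26 (log2FC 4.57 ± 1.00, adjusted p = 0.00519). The leak potassium channel KCNK1 fell from 78.99, 112 and 122 to 4.38, 2.19 and 1.16 CPM (log2FC -5.34 ± 0.47, adjusted p = 1.02e-05).

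CD70, a TNF-family ligand of the cell surface, rose from 45.7, 60.6 and 98.9 to 776, 469 and 232 CPM (log2FC 2.85 ± 0.55, adjusted p = 0.00239). Among noncoding genes CEROX1 rose from 0.299, 0.064 and 0.0518 to 52.9, 28.6 and 31.9 CPM (log2FC 8.04 ± 0.74, adjusted p = 1.27e-05), and AC105460.1 fell from 137, 134 and 204 to 0, 0.122 and 0.263 (log2FC -10.15 ± 1.04, adjusted p = 2.98e-05).

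Genes of some chromosomes moved together by a small amount. The median log2 fold change was -0.71 on chromosome 13, where 111 of 308 genes (36.0%) were lower, -0.59 on chromosome 4 (189 of 613, 30.8%) and -0.58 on chromosome 7 (235 of 840, 28.0%). It was 0.47 on chromosome 21, 0.39 on chromosome 22 and 0.38 on chromosome 5. The 3 resistant libraries lay close together: on chromosome 13 their median log2 levels against the parental mean were -0.68, -0.66 and -0.70, on chromosome 7 -0.53, -0.58 and -0.54, and on chromosome 5 0.27, 0.32 and 0.25. Parental libraries stayed between -0.15 and 0.04 on every chromosome. In windows of 20 Mb with at least 30 tested genes, 13 of 151 had a median of at least 0.5 and 23 of at most -0.5, and all 36 had the same sign among the knockout libraries. The lowest medians were at 20 to 40 Mb on chromosome X (-0.90, 16 of 42 lower), 60 to 80 Mb on chromosome 4 (-0.86, 28 of 59 lower and 0 higher), and 40 to 60 Mb on chromosome 13 (-0.86, 33 of 84 lower). The highest was at 140 to 160 Mb on chromosome 5 (0.93, 63 of 163 higher). The chromosome 4 window holds the chemokine run, that on chromosome 13 RB1 and that on chromosome 5 the PCDHB run. DNA copy number was not measured, and its part in these shifts was not tested.

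**Figure D4:**
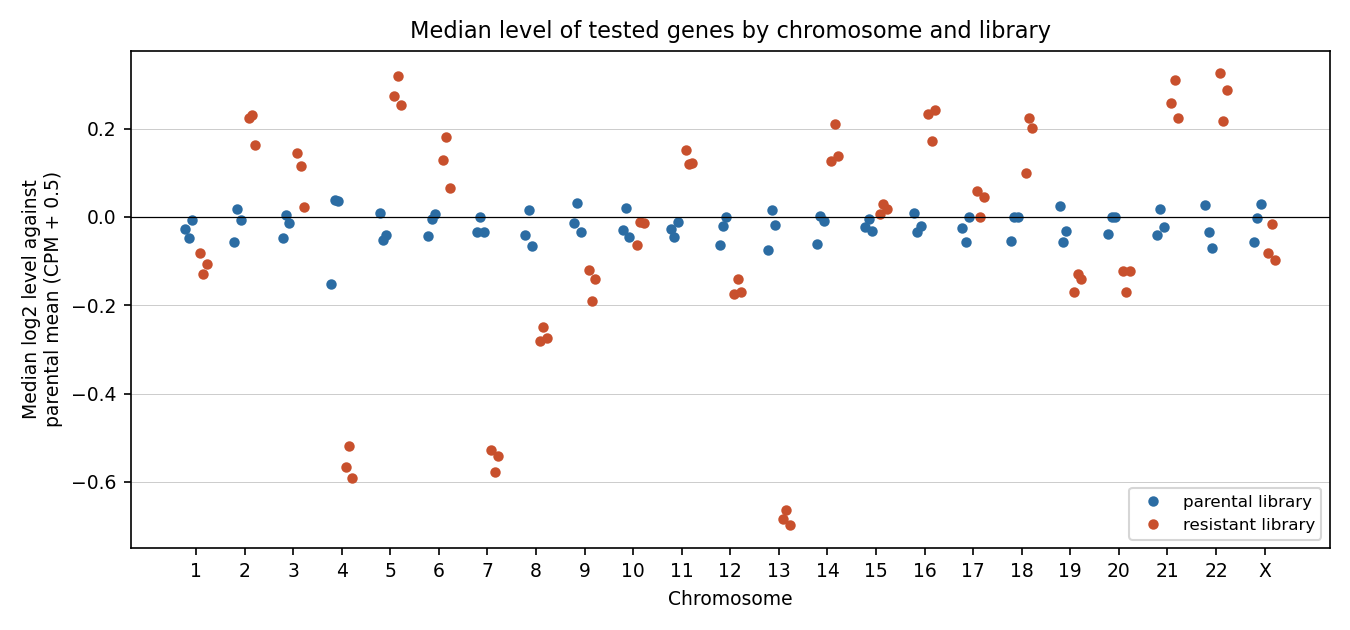
Median over genes of each chromosome of the log2 level relative to the parental mean (CPM plus 0.5), 1 point per library. Resistant libraries cluster below 0 on chromosomes 13, 4 and 7 and above 0 on 5, 21 and 22, while parental libraries stay between -0.15 and 0.04.

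Zinc finger genes of chromosome 19, a dense array of KRAB repressors, had 36 of 241 members lower (14.9%, near the background) and 8 higher (3.32%), with a median log2 fold change of -0.37. Zinc finger genes elsewhere had 44 of 234 lower (18.8%) and 14 higher (5.98%). Glycosyltransferases and sialyltransferases, which build cell-surface sugars, had 32 of 67 higher and 5 lower. Solute carriers had 66 of 265 higher and 35 lower. These families were chosen after the data were seen.

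In the 6 libraries with the KDM5A and KDM5B double knockout, resistant and parental cells differed in 4281 genes (23.9%), 2445 (13.6%) higher and 1836 (10.2%) lower. Without resistant knockout library 1 the count was 2715 (1054 lower), without resistant knockout library 2 it was 2714 (1010 lower), and without parental knockout library 2 1180 were lower. These libraries share no sample with the comparison above, but they are not independent of it: deviations from the group means correlated across genes between parental and parental knockout libraries of the same number at 0.66, 0.77 and 0.78, and between those of different numbers at -0.49 to -0.24. Between resistant and resistant knockout libraries of the same number they correlated at 0.57, -0.19 and 0.64. The fit does not model this, so the counts below are a description. Of its 2728 higher genes 1902 passed among the knockout libraries and 2701 had the same sign; of its 2302 lower genes 1413 passed and 2270 had the same sign. Examples of values that matched in direction are MT2A (152 ± 29.8 against 1056 ± 828 CPM, log2 fold change 2.80, adjusted p = 0.00539), ALDH1A1 (0.11 ± 0.115 against 142 ± 51.7 CPM, 10.20, adjusted p = 3.18e-06) and FTH1 (7091 ± 2129 against 488 ± 174 CPM, -3.86, adjusted p = 9.23e-05). Of the 337 named genes that passed without the knockout, 257 passed in the same direction with it and 80 (28 higher and 52 lower) did not, among them SLFN11 above, CDH13, PCDH9, HES1 (10.7 ± 3.8 against 11.8 ± 0.578 CPM, adjusted p = 0.838) and STEAP1 (6.13 ± 2.12 against 5.66 ± 1.76 CPM, adjusted p = 0.875). The edgeR test of the difference between both comparisons did not pass for any of these named examples, CDH13 and PCDH9 included (adjusted p = 0.337 for SLFN11, 0.670 for HES1 and 0.348 for STEAP1).

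Genes with few or no reads in resistant cells had reads in resistant knockout cells. The genes were chosen by their low values in the resistant libraries, so only the knockout values are outside the choice. For the 44 genes that fell from at least 5 to under 0.1 CPM, the median level was 0% of the parental mean in each resistant library, with reads for 18, 10 and 20 of the 44 genes. In resistant knockout libraries 1, 2 and 3 it was 2.55%, 2.32% and 2.93%, with reads for 43, 42 and 42 genes. The mirror set behaved differently: for the 77 genes that rose from under 0.1 CPM, the median in parental knockout libraries was 0.203%, 0% and 0.311% of the resistant mean, with reads for 45, 28 and 45 of 77 genes, against 32, 22 and 31 in the parental libraries. Whether a small share of parental RNA or cells mixed into the resistant knockout samples contributes to that level was not tested.

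**Figure D5:**
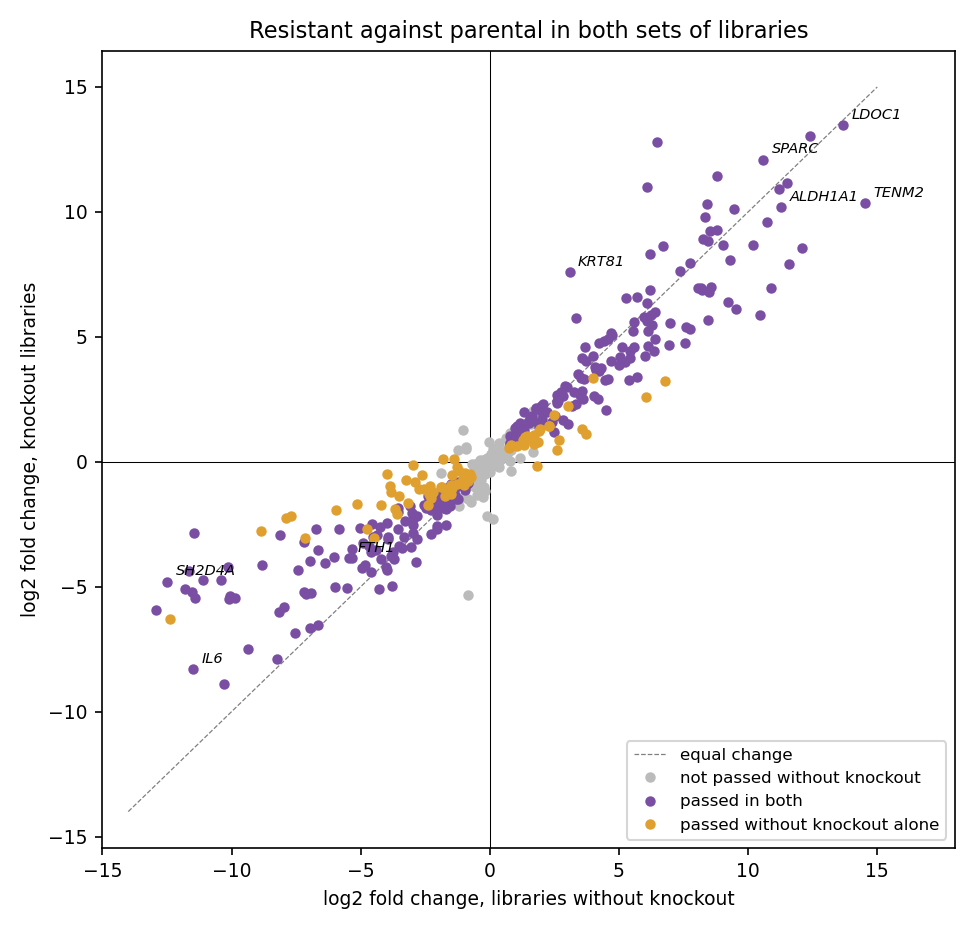
Log2 fold change of resistant over parental cells for the 422 named genes, without the knockout on the horizontal and with it on the vertical axis; the line marks equal values. Most points keep their sign, and many of the lowest genes lie nearer 0 with the knockout. Most genes were named for their change without the knockout, and that choice alone can leave values nearer 0 with it. Fitted values of genes near 0 reads depend on the prior count.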

How the data were processed

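RNA counts of 12 SKOV-3 libraries were used, and the comparison takes 3 parental and 3 resistant libraries without knockout. The authors deposited raw read counts per gene; per the submitters' processing notes, reads were trimmed with Trim Galore 0.6.10, aligned with STAR 2.7.10a to GRCh38 and counted with featureCounts 2.0.1. The sources used here do not give the strand setting or the annotation. Per the labels' protocols, libraries came from poly(A) RNA with a directional kit. The table has 59542 rows and 59498 gene IDs, of which 57380 are in GENCODE 29 (99.95% of counts), used for symbols and positions. edgeR 4.0.16 (R 4.3.3) fitted 1 mean per group over all 12 libraries with TMM factors after its filterByExpr filter, by quasi-likelihood with robust estimation, no replicate block and 8 residual degrees of freedom, with Benjamini-Hochberg adjustment over 17947 genes at 0.05. Same-numbered parental and resistant libraries did not deviate together, so they were treated as unpaired. Same-numbered libraries with and without the knockout did deviate together in most pairs, which the fit does not model. The 8 degrees of freedom may thus overstate the information behind the p-values of the main comparison. On its 6 libraries alone 4510 genes passed. Replicates of a group differed by more than sampling noise, and all were kept.

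The test was also run on simulated data with known changes and the spread of the fit. There it missed nearly all 2-fold and many 4-fold changes. Far fewer genes were changed in the simulation than passed in the data, which makes its adjusted threshold stricter. Its recovery therefore does not measure the share of changes found in the data. The comparison, the 61 lists and the rule for named genes were chosen with earlier results of these data known. The rule names, per direction, the 8 coding genes with the largest fold and at least 5 CPM, the 12 with the largest difference per kilobase, at most 3 passing members per list, 4 noncoding genes, members marked in advance as key, and the KDM5 genes: 422 in all, of which some are not reported here. Alternatives were DESeq2 1.42.0, limma-voom 3.58.1, other scaling and filters, the replicate number as a block, the 6 libraries alone and leaving out libraries. Promoters are from RefSeq on GRCh38.p14.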

Additional observations from a re-analysis of the deposited data

Results flagged for a closer look

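For 5 genes the difference between resistant and parental cells itself differed between the libraries without and with the KDM5A and KDM5B knockout, by the interaction term of the same edgeR fit over 17947 genes. Each value is the log2 fold change without minus that with the knockout. CALB1, which encodes the calcium-binding protein calbindin, had a difference of -5.31 (adjusted p = 0.00473), with mean levels of 244.7 and 0.286 CPM in parental and resistant cells and 235.7 and 11.2 CPM after the knockout. LINC02582, a noncoding gene, had -5.41 (adjusted p = 0.00494), with 238.9 and 0.290 CPM against 169.6 and 8.90 CPM. SH2D4A, an SH2-domain protein gene, had -7.69 (adjusted p = 0.0381), with 40.9 CPM and 0 reads against 28.6 and 1.03 CPM. Its fitted value depends on the prior count. KRT81, a hair keratin, had -4.49 (adjusted p = 0.0381), with 0.354 and 3.04 CPM against 0.662 and 126.3 CPM. LINC00922 had -5.20 (adjusted p = 0.00613), with 2.77 and 1.40 CPM against 0.471 and 8.80 CPM. CALB1, LINC02582 and SH2D4A were thus at or near 0 in resistant cells and low in resistant knockout cells, the pattern given above for the 44 genes that fell below 0.1 CPM; mixing with parental material was not tested. The fit does not model the correlation between same-numbered libraries given above.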

How the results depend on the processing

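Of 7126 values of 422 named genes under the alternatives, 6562 kept their direction and side of the threshold, 521 lost the call, 42 gained it and 1 reversed: SCD, at -2.81 without resistant replicate 1. For 294 of the 422 genes nothing changed under any alternative run. Of 2074 list counts 348 moved by over 1.5 times. Of 657 passing members or named genes, 421 passed without each of the 6 libraries in turn, and 200 calls were lost without parental library 2.

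Leaving out 1 library gave 3081 to 4737 passing genes (1729 to 2595 higher, 1352 to 2287 lower), and 2714 to 4696 among the knockout libraries (1661 to 2602 higher, 1010 to 2094 lower). On the 6 knockout libraries alone 1191 were lower. Without scaling factors 2833 were higher and 2030 lower (median of all genes 0.08), and among knockout libraries 2928 and 1368 (median 0.15). DESeq2 called 5982 genes, limma-voom 4948, median-of-ratios factors 4990, a filter of 1 count only 5730 and the 6 libraries alone 4510.

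The replicate numbers share no more than a number between parental and resistant libraries: same-numbered pairs correlated at -0.03, 0.16 and -0.16. With the replicate block over all 12 libraries 5537 genes passed, and with the replicate block on the 6 libraries alone, an alternative chosen after seeing the data, 3536 (1503 lower). With 3 libraries a group, a gene that missed the threshold is not shown to be equal between groups.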
